A study of Danio rerio with 16 samples.

Results

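Normal development of the zebrafish embryo was examined across the second day of life. WT embryos at 2 days post fertilization (dpf) were compared with WT embryos at 1 dpf, across all genes of the count table. The 2 dpf group held 3 libraries (replicates 1, 2, and 3) and the 1 dpf group 4 libraries (replicates 1, 2, 4, and 5), so that 7 of the 15 libraries that could be matched to a label were WT. The libraries were assigned to these groups by their sample labels. The gene lists used below were chosen with earlier results of these data known. Replicate 3 at 1 dpf is listed, but its library name matched no column of the table, and it was not used here. One library name of the table stands on 2 columns that match no label, and whether either is this library was not tested. For each library, 10 whole embryos were pooled and their total RNA extracted. All carried both WT copies of *fbn2b* (genotype fbn2b +/+), the zebrafish fibrillin gene called *fbn3* in the paper. The labels name no treatment. The paper calls the WT animals siblings of mutants, which came from stable lines. The lines were founded by injecting guide RNA and Cas9 protein into eggs of fish with a reporter. This was either Tg(kdrl:EGFP), which labels vessels, or Tg(mpx:GFP), which labels neutrophils. Per the paper, the lines were crossed to WT fish of the AB background, with at least 4 generations of outcrossing. The remaining 8 libraries were from embryos with both copies mutated (*fbn3*-/-), 5 at 2 dpf and 3 at 1 dpf. These shared the estimate of the spread in the fit.

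At 1 dpf the zebrafish embryo has just completed its somites, its heart has begun to beat, and its tail bud is at the end of axis elongation. By 2 dpf the embryo is close to hatching, moves, and circulates blood, and its eye, brain, skin, and skull are differentiating. Progenitor cells leave the cell cycle over this day, and genes of differentiated cells, such as lens crystallins, synaptic proteins, and fast muscle proteins, are known to be switched on. RNA of a whole embryo adds up all of these tissues, so that fewer cells of a type and less RNA per cell cannot be told apart in such data.

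The counted reads per library were between 87748238 and 134038214 at 2 dpf and between 41473603 and 77233445 at 1 dpf. The 13 mitochondrially encoded genes took 2.58% to 3.83% of counts at 2 dpf and 2.42% to 3.62% at 1 dpf. Gene levels are given in CPM, the counts of a gene relative to the TMM-scaled total of its library, in the order of replicates 1, 2, and 3 at 2 dpf and 1, 2, 4, and 5 at 1 dpf. The Spearman correlation between libraries, taken across genes as a description, was 0.983 to 0.991 within 2 dpf, 0.977 to 0.99 within 1 dpf, and 0.916 to 0.947 between the stages. Replicate 1 at 2 dpf stood nearest to the 1 dpf libraries. In 65.0% of the 6376 genes called, it was the 2 dpf library with the value closest to the 1 dpf mean, against 16.3% for replicate 2 and 18.6% for replicate 3. By their library numbers, the libraries were divided into an earlier and a later set at a cut set by hand. The numbers run on across this cut without a gap. Replicate 1 at 2 dpf and replicates 1 and 2 at 1 dpf fall in the earlier set, and the other WT libraries in the later set. The labels name no batch. The log2 difference had the same sign within both sets in 6337 of the 6376 genes called, and exceeded 1 in size within both in 4625. These genes were called on the same libraries, so that the agreement is largely given in advance. The earlier set holds a single WT library at 2 dpf, and the share over all genes was not formed. *fbn2b* (ENSDARG00000098237), the gene that defines the genotype, was present in every library (230.1, 164, and 239 CPM at 2 dpf, against 103, 166, 170.0, and 337 CPM at 1 dpf).

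Of 23555 genes tested, 6376 (27.1%) were called in edgeR's quasi-likelihood F test. A call required a log2 fold change (log2FC, 2 dpf over 1 dpf) above 1 or below −1 and a Benjamini-Hochberg adjusted p (FDR) under 0.05. Among them, 4161 genes (17.7% of those tested) were higher at 2 dpf and 2215 (9.4%) were lower. The libraries of the stages did not overlap in 5871 of the called genes. Among all 23555 genes tested, the 2 dpf libraries were all above in 6051 genes and all below in 5658. A lack of overlap was thus common, and does not by itself set a gene apart. Large changes were mostly increases, with 665 genes above a log2FC of 3 against 133 genes below −3. The same held above 5, with 141 genes against 22 below −5. At any fold, 12852 genes (54.6%) had an FDR under 0.05, of which 6356 (27.0%) were higher and 6496 (27.6%) lower. The median log2FC of all genes was −0.04. With libraries scaled by their totals alone, this median moved to 0.11, and 74.4% of the called genes were higher, against 65.3% with TMM. In 54 lists of genes of a tissue or process, the share of called genes is read against 17.7% and 9.4% of all genes. Lists share members, and no test of a list was made. A gene near 0 at 1 dpf passed the filter on low counts only through 2 dpf libraries, and could only be called higher. The counts and medians of lists with such genes, as of the lens and of photoreceptors, are thus partly given in advance. Where a list had few called genes, those that the rule for named genes did not take are listed with their log2FC at the end of its account and were named after their values were seen.

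**Figure D1:**
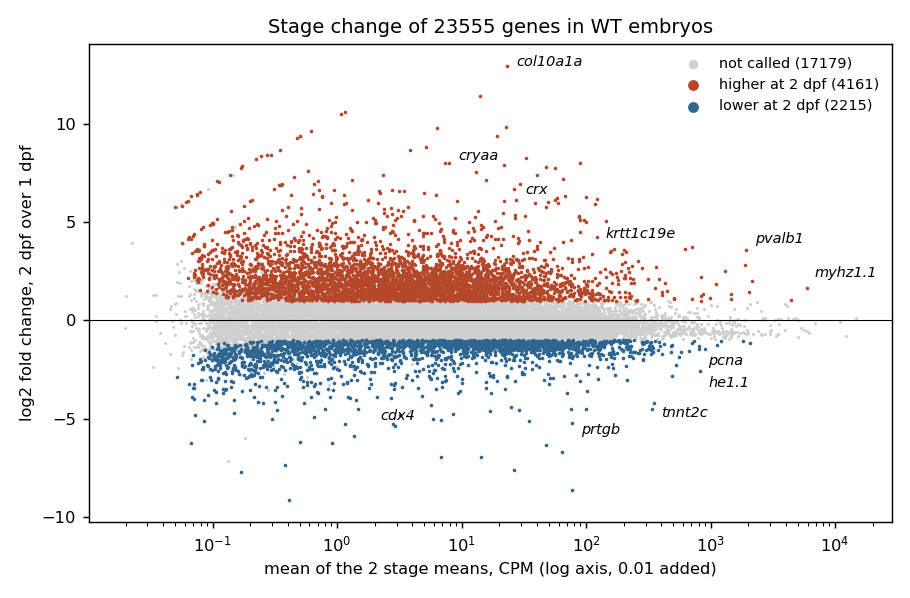
Each point is 1 of 23555 genes in WT embryos, with the fitted log2 fold change of 2 dpf over 1 dpf (vertical axis) against the mean of both stage means in CPM (horizontal axis, log scale, 0.01 added). The 4161 genes called higher at 2 dpf are red, the 2215 called lower are blue, and grey genes were not called. The fitted value of a gene with almost no counts at one stage, such as *col10a1a*, depends on the prior count and is no measure of its fold.

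**Figure D2:**
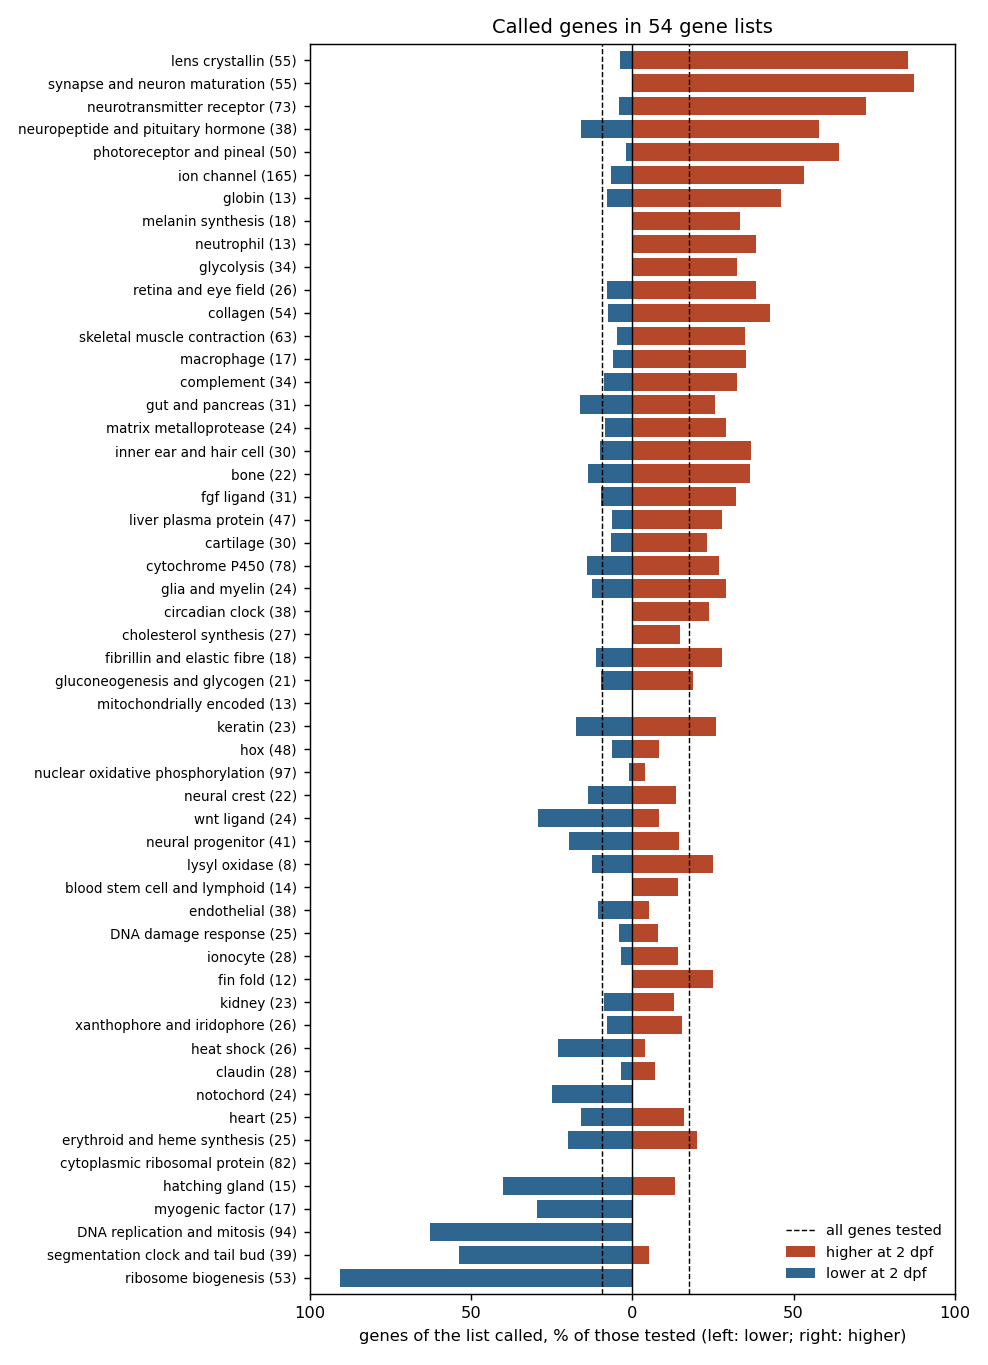
Bars give the percentage of the genes tested of each of 54 lists that were called higher (right, red) or lower (left, blue) at 2 dpf, with the number of genes tested in parentheses and the lists ordered by median log2FC. Dashed lines mark the percentages of all genes, 17.7% higher and 9.4% lower. Lens, neuronal, and photoreceptor lists stand at the top, and ribosome biogenesis, the tail bud, and DNA replication at the bottom.

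The lens showed the largest change of the 54 lists by its median. Crystallins are the soluble proteins that fill the fibre cells of the lens and give it its refractive power. Of 55 lens genes tested, 47 were called higher at 2 dpf and 2 lower, with a median log2FC of 4.48. The summed level of the list was between 4792 and 7115 CPM at 2 dpf, against 294 to 929 CPM at 1 dpf. *cryaa* (ENSDARG00000053502), the alpha-crystallin that also acts as a chaperone, had 15.9, 20.3, and 11.2 CPM at 2 dpf, against 0.109, 0.0821, 0.0415, and 0 CPM at 1 dpf. It was near 0 at 1 dpf, and the stages did not overlap (log2FC 7.99, SE 0.50, FDR 1.44e-09). The gamma-crystallin *crygm2d1* (ENSDARG00000087324) had 232, 222, and 138 CPM at 2 dpf, against 6.01, 2.65, 1.22, and 0.339 CPM at 1 dpf (log2FC 6.29, SE 0.83, FDR 1.32e-05). *cryba2a*, a beta-crystallin, had 182, 163, and 126 CPM at 2 dpf, against 28.2, 18.1, 15.8, and 8.86 CPM at 1 dpf (log2FC 3.14, SE 0.60, FDR 0.000383). In these 3 genes replicate 1 was the highest library at 1 dpf and replicate 5 the lowest.

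Among the 10 called genes with the largest fold at 2 dpf were further lens genes. The gamma-crystallins *crygm2d15*, *crygm2d16*, *crygm2d9*, and *crygm2d2* had means at 2 dpf that were 875, 704, 309.6, and 215 times those at 1 dpf, and *lgsn*, which codes for lengsin, a lens protein, 290.4 times. *lim2.5*, of the lens intrinsic membrane protein family, had 12.8, 11.8, and 13.3 CPM at 2 dpf, against 0.0656, 0, 0, and 0 CPM at 1 dpf, at least 229-fold higher when 1 dpf is set to a floor of 3 counts per library. For *crygm2d11* the same bound was 139-fold. The *crygm2d* genes are close copies of each other, and how reads that fit several copies were counted is not given in the sources used here, so the level of a single copy is uncertain. A regulator of the early lens epithelium went the other way. *foxe3* had 2.17, 2.47, and 1.95 CPM at 2 dpf, against 4.11, 4.79, 4.71, and 7.21 CPM at 1 dpf, without overlap (log2FC −1.24, SE 0.22, FDR 0.000193). Without replicate 2 at 1 dpf, 1 lens gene was called lower. The other member called lower was *crybb3*, named here after its values were seen. The call of *crybb3* was lost without replicate 2 at 1 dpf (log2FC −0.93). A further 13 listed lens genes did not pass the filter on low counts. Lens genes near 0 at 1 dpf passed it only through 2 dpf libraries, so that the count of 47 and the median are partly given in advance.

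In the eye and the pineal organ, genes of light-sensing cells were higher. Of 50 photoreceptor and pineal genes tested, 32 were called higher and 1 lower (median log2FC 1.37), and the list summed to between 226 and 385 CPM at 2 dpf, against 42.3 to 52.5 CPM at 1 dpf. *crx* (ENSDARG00000011989), the homeobox factor that directs photoreceptor differentiation, had 35.1, 68.8, and 57.3 CPM at 2 dpf, against 0.918, 0.643, 0.623, and 0.944 CPM at 1 dpf. Every 2 dpf library exceeded every 1 dpf library by a wide margin (log2FC 6.15, SE 0.38, FDR 1.28e-08). *otx5* (ENSDARG00000043483), a related factor of the pineal organ and retina, had 39.2, 57.1, and 59.5 CPM at 2 dpf, against 1.07, 1.31, 1.34, and 1.36 CPM at 1 dpf (log2FC 5.34, SE 0.33, FDR 1.20e-08). *six7*, a factor of cone photoreceptors, had 16.3, 35.7, and 25.4 CPM at 2 dpf, against 0.372, 0.0137, 0.125, and 0.0968 CPM at 1 dpf, also without overlap (log2FC 7.56, SE 0.58, FDR 6.69e-08). *foxq2*, a factor of blue-cone opsin expression, had no count in any 1 dpf library and 1.41, 2.97, and 2.55 CPM at 2 dpf, at least 41.8-fold higher. Rhodopsin, *rho*, had 2.63, 11.3, and 5.22 CPM at 2 dpf, against 0.481, 0.123, 0.0831, and 0 CPM at 1 dpf (log2FC 5.30, SE 1.00, FDR 0.000325). *exorh*, the rhodopsin of the pineal organ, was present at both stages, with 4.77, 5.1, and 4.57 CPM at 2 dpf, against 2.54, 2, 2.1, and 2.3 CPM at 1 dpf (log2FC 1.12, FDR 0.00117). *aanat2*, the melatonin rhythm enzyme, had 1.66, 2.43, and 1.36 CPM at 2 dpf, against 1.01, 0.711, 1.07, and 0.774 CPM at 1 dpf (log2FC 1.01), and its call was lost without replicate 2 at 2 dpf (log2FC 0.75), replicate 2 at 1 dpf (0.90), or replicate 5 at 1 dpf (0.97). The 1 gene called lower was *opn1sw2*, named after its values were seen, and 2 genes were called lower when replicate 1 at 2 dpf or replicate 2, 4, or 5 at 1 dpf was left out. The call of *opn1sw2* was lost without replicate 4 at 1 dpf (log2FC −0.70).

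Of 26 genes of the retina and eye field, 10 were called higher and 2 lower (median 0.72). *atoh7* (ENSDARG00000069552), the factor needed for retinal ganglion cells, had 15.9, 11.4, and 11.2 CPM at 2 dpf, against 0.546, 0.615, 0.554, and 0.387 CPM at 1 dpf (log2FC 4.57, SE 0.33, FDR 4.86e-08). *rx1*, of the retinal homeobox family, had 15.4, 13.5, and 13.6 CPM at 2 dpf, against 42.6, 40.5, 61.9, and 49.8 CPM at 1 dpf, and was lower at 2 dpf without overlap (log2FC −1.78, SE 0.15, FDR 1.67e-07). *rx3*, which specifies the eye field, had 3 to 5.07 CPM at 2 dpf and 3.9 to 4.5 CPM at 1 dpf and was not called (FDR 0.616).

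Genes of maturing neurons were higher with few exceptions. Of 55 genes of synapses and neuronal maturation, 48 were called higher and none lower, with a median log2FC of 1.88. The list summed to between 3392 and 4212 CPM at 2 dpf, against 1163 to 1418 CPM at 1 dpf. *syt1a* (ENSDARG00000030614), the calcium sensor of synaptic vesicle release, had 79.4, 116, and 115 CPM at 2 dpf, against 23.3, 20.5, 22.5, and 17.9 CPM at 1 dpf (log2FC 2.29, SE 0.20, FDR 2.64e-07). *stxbp1b*, a binding partner of syntaxin, had 7.45, 24.5, and 17.1 CPM at 2 dpf, against 0.568, 0.656, 0.651, and 0.799 CPM at 1 dpf (log2FC 4.62, SE 0.49, FDR 1.54e-06). *nefla*, a neurofilament subunit of axons, had 8.24, 9.37, and 8.17 CPM at 2 dpf, against 1.33, 0.807, 0.9, and 0.702 CPM at 1 dpf (log2FC 3.21, SE 0.23, FDR 4.02e-08). The stages were apart in each of these genes, and replicate 1 was the lowest 2 dpf library in *syt1a* and *stxbp1b*. *snap25a*, of the vesicle fusion machinery, had a log2FC of 1.44 (FDR 7.53e-06). *elavl3*, a marker of newly born neurons, had 660.1, 677, and 769.7 CPM at 2 dpf, against 298, 283, 370.5, and 325 CPM at 1 dpf (log2FC 1.14, SE 0.11, FDR 5.85e-07).

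Receptors and channels of excitable cells followed the same direction. Of 73 subunits of neurotransmitter receptors, 53 were called higher and 3 lower (median 1.77). The glutamate receptor subunit *grin1b* had 20, 33.1, and 30.9 CPM at 2 dpf, against 3.13, 1.35, 1.2, and 1.09 CPM at 1 dpf (log2FC 4.08, SE 0.41, FDR 8.28e-07). The AMPA receptor subunit *gria2a* had 39.1 to 48.7 CPM at 2 dpf and 5.44 to 12.6 CPM at 1 dpf (log2FC 2.41, FDR 3.61e-06). The members called lower were all subunits of acetylcholine receptors, *chrng*, *chrnd*, and *chrna4a*, the last named after its values were seen. *chrng* (ENSDARG00000086647), the gamma subunit of the embryonic muscle receptor, had 2.29, 3.07, and 2.71 CPM at 2 dpf, against 34.8, 23.9, 34, and 22 CPM at 1 dpf (log2FC −3.41, SE 0.30, FDR 2.76e-07). All 2 dpf libraries were far below all 1 dpf libraries. *chrnd*, the delta subunit, had 19.9 to 26.8 CPM at 2 dpf and 36.6 to 60.5 CPM at 1 dpf (log2FC −1.04), and its call was lost without replicate 3 at 2 dpf or replicate 1 at 1 dpf (log2FC −0.92 in both). Without replicate 2 at 2 dpf, 5 receptor genes were called lower. Of 165 ion channel genes, 88 were called higher and 11 lower (median 1.12), and 7 were lower without replicate 2 at 2 dpf or replicate 1 at 1 dpf. The axonal sodium channel *scn8aa* had 51.6, 69.3, and 64.7 CPM at 2 dpf, against 17.7, 19.5, 18.7, and 20.3 CPM at 1 dpf (log2FC 1.70, FDR 4.21e-07). The potassium channels *kcna1a* and *kcnj10a*, the second known from glia, had log2FC of 2.78 and 5.00. The inward rectifiers *kcnj1a.3* and *kcnj1a.4*, adjacent-numbered copies of a channel of salt-transporting cells, were lower (−1.75 and −1.71).

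**Figure D3:**
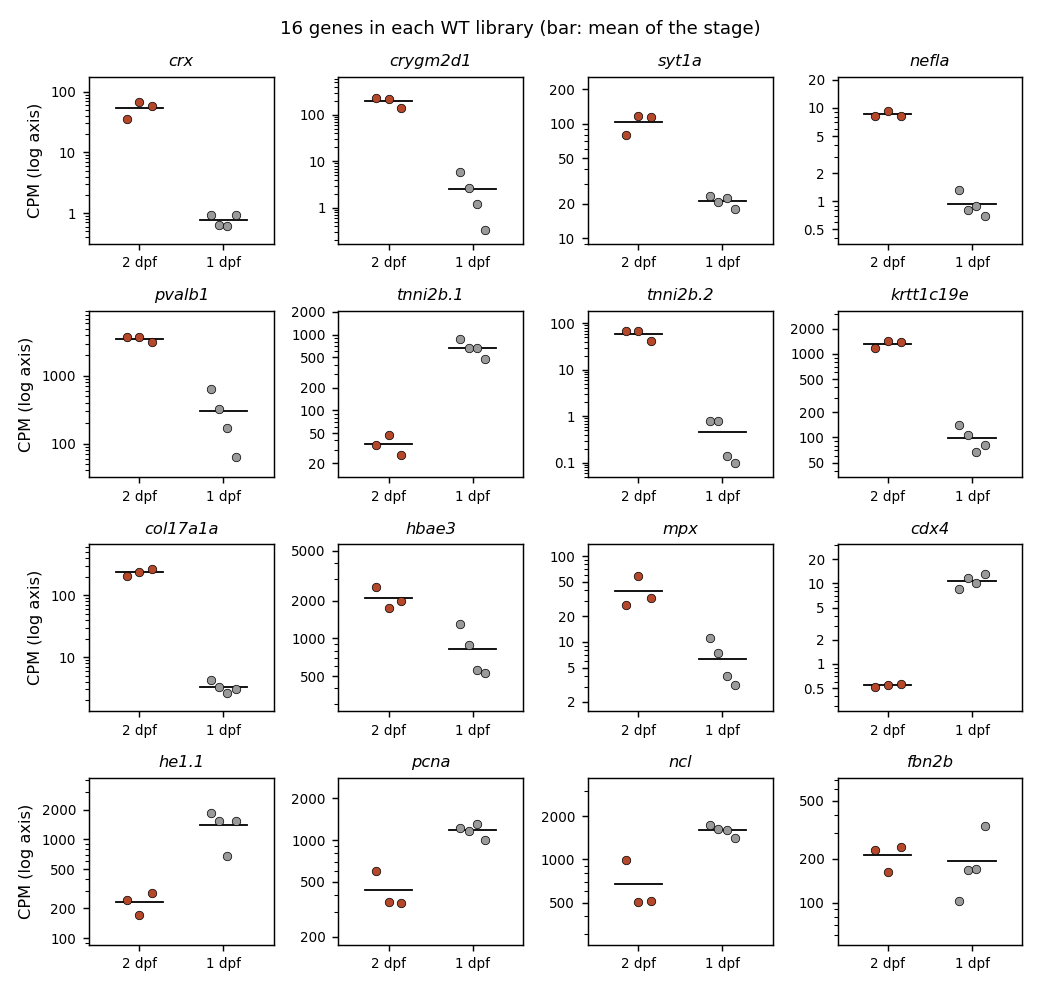
Each panel shows 1 gene, with the level in CPM (log axis) of the 3 WT libraries at 2 dpf (left, red) and the 4 at 1 dpf (right, grey), and a bar at the mean of the stage. The genes were picked by hand from the named genes, most of which were called. In 15 of the 16 genes the stages do not overlap, which follows largely from this choice. Among all 23555 genes tested, the 2 dpf libraries were all above in 6051 genes and all below in 5658. *fbn2b* overlaps, with 164 to 239 CPM at 2 dpf and 103 to 337 CPM at 1 dpf.

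Genes of the neural progenitor list were called in both directions. Of 41 tested, 6 were called higher and 8 lower, 14.6% and 19.5% against 17.7% and 9.4% of all genes. Without replicate 4 at 1 dpf, 5 were lower. The sign of the list's median depended on the scaling. *sox19a* (ENSDARG00000010770) and *sox3*, SOX factors of dividing neural progenitors, were lower. *sox19a* had 146, 111, and 125 CPM at 2 dpf, against 354, 380.4, 518, and 359.6 CPM at 1 dpf (log2FC −1.66, SE 0.14, FDR 2.13e-07). *sox3* had 143, 116, and 126 CPM at 2 dpf, against 246, 269, 326, and 257 CPM at 1 dpf (log2FC −1.10, SE 0.13, FDR 5.77e-06). *egr2b*, which marks hindbrain segments 3 and 5, had 0.599, 0.655, and 0.934 CPM at 2 dpf, against 8.92, 6.98, 6.98, and 9.99 CPM at 1 dpf, and was lower without overlap (log2FC −3.45, SE 0.25, FDR 4.99e-08). *fabp7a*, a fatty acid binding protein of radial glia, went up, with 558, 518, and 458 CPM at 2 dpf, against 125, 107, 155, and 84.6 CPM at 1 dpf (log2FC 2.12, SE 0.25, FDR 4.06e-06). The proneural factor *neurog1* had 30 to 38.3 CPM at 2 dpf and 30.7 to 47.4 CPM at 1 dpf (FDR 0.745). Also called higher were *neurod1* (log2FC 2.01), *neurod4* (log2FC 1.11), *neurod6a* (log2FC 2.85), *neurod6b* (log2FC 1.86), and *otx2b* (log2FC 1.77), and the *neurod* genes act in neurons that leave the progenitor state. Not every gene called lower is named here, so that the named genes do not give the balance of the list. Among 24 glial genes, 7 were called higher and 3 lower. *slc1a3b*, a glial glutamate transporter, had 45.7, 54.3, and 58.9 CPM at 2 dpf, against 4.2, 3.28, 4.58, and 1.67 CPM at 1 dpf (log2FC 3.93, SE 0.37, FDR 4.70e-07), while its duplicate *slc1a3a* had 112, 64.3, and 71.7 CPM at 2 dpf, against 275, 239.8, 262, and 208 CPM at 1 dpf (log2FC −1.58, SE 0.18, FDR 3.00e-06). The duplicates thus moved in opposite directions. The other glial genes called lower were *mpz*, of the myelin protein zero family, and *glula*, a glutamine synthetase (log2FC −1.97 and −1.02). The call of *glula* was lost without replicate 2 at 2 dpf (log2FC −0.93), replicate 1 at 1 dpf (log2FC −0.98), replicate 2 at 1 dpf (log2FC −0.98), or replicate 5 at 1 dpf (log2FC −0.96). *olig2*, of motor neuron and oligodendrocyte precursors, was not called (log2FC 0.49), and *olig1* was higher (1.59 to 3.55 CPM at 2 dpf and 0 to 0.235 CPM at 1 dpf). The myelin gene *mbpa* did not pass the filter, with 0, 0.125, and 0.00713 CPM at 2 dpf and no count at 1 dpf.

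Of 38 neuropeptide and pituitary hormone genes, 22 were called higher and 6 lower (median 1.42). *pomca*, the precursor of ACTH and MSH, had 0.38, 0.478, and 0.492 CPM at 2 dpf, against 0.0437, 0.0137, 0.0277, and 0.0484 CPM at 1 dpf, at least 8.16-fold higher over the floor of 3 counts. *vip*, *crhb*, and *oxt*, which code for vasoactive intestinal peptide, corticotropin-releasing hormone, and oxytocin, were near 0 at 1 dpf and had log2FC of 4.48, 3.51, and 3.05. *trh*, for thyrotropin-releasing hormone, had 1.35, 1.68, and 1.45 CPM at 2 dpf, against 1.92, 2.71, 5.15, and 4.33 CPM at 1 dpf (log2FC −1.25, FDR 0.00347), and its call was lost without replicate 4 at 1 dpf (log2FC −0.98). *prl*, for prolactin, had 2.72 to 4.17 CPM at 2 dpf and 1.66 to 2.67 CPM at 1 dpf. It was not called (log2FC 0.89), but passed the threshold without replicate 3 at 2 dpf (1.07) or replicate 1 at 1 dpf (1.06). Of the other genes called lower, *hcrt* codes for hypocretin, *agrp* for the agouti-related peptide, *smtla* for a somatolactin, and *cart4* for a CART peptide (log2FC −1.37, −1.05, −2.13, and −1.12). The call of *agrp* was lost without replicate 2 at 2 dpf (log2FC −0.96), replicate 1 at 1 dpf (log2FC −0.95), or replicate 2 at 1 dpf (log2FC −0.91). The call of *cart4* was lost without replicate 3 at 2 dpf (−0.96) or replicate 1 at 1 dpf (−0.95).

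In skeletal muscle, 22 of 63 contraction genes were called higher and 3 lower (median 0.69). The list summed to between 69609 and 89199 CPM at 2 dpf, against 33765 to 82053 CPM at 1 dpf, so that the highest 1 dpf library, replicate 1, lay within the 2 dpf range. Fast-fibre proteins had 8 of the 10 largest increases in CPM. *myhz1.1* (ENSDARG00000067990), a fast myosin heavy chain, had 9585, 9951, and 7435 CPM at 2 dpf, against 4144, 2985, 2613, and 1627 CPM at 1 dpf (log2FC 1.66, SE 0.32, FDR 0.000459). *pvalb1* and *pvalb2* code for the parvalbumins that buffer calcium in fast fibres. *pvalb1* had 3721, 3685, and 3173 CPM at 2 dpf, against 636, 327, 168, and 63.1 CPM at 1 dpf (log2FC 3.56, SE 0.65, FDR 0.000252). *pvalb2* had 3266, 3714, and 2956 CPM at 2 dpf, against 871, 584, 306, and 117 CPM at 1 dpf (log2FC 2.82, SE 0.50, FDR 0.000203). *tnnt3b*, the fast troponin T, had 2313, 2399, and 2003 CPM at 2 dpf, against 758, 424, 261, and 129.5 CPM at 1 dpf (log2FC 2.51, SE 0.51, FDR 0.00068). In these 4 genes the 1 dpf libraries were in the same order, with replicate 1 highest and replicate 5 lowest, and none reached the 2 dpf range. DESeq2 gave no adjusted p for *pvalb1* (log2FC 3.59). *myhz1.2*, *mylz3*, and *tnni2a.4* were higher too (log2FC 2.02, 1.44, and 1.87). *tpma*, a tropomyosin, was at the threshold (log2FC 1.02), and was not called without replicate 2 at 2 dpf (0.98), replicate 4 at 1 dpf (0.95), or replicate 5 at 1 dpf (0.82). *mylpfa* and *myhz2*, further fast fibre genes, had log2FC of 0.75 and 0.95 and were not called, but were without replicate 1 at 1 dpf (1.11 and 1.30). *smyhc1*, the slow myosin heavy chain, had 857, 839.6, and 1017 CPM at 2 dpf, against 1755, 1789.6, 1204, and 1728 CPM at 1 dpf, with an FDR of 0.0053 and a log2FC of −0.84, short of the threshold.

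Troponin genes moved in both directions. *tnni2b.2* (ENSDARG00000029995) had 67.1, 67, and 41.6 CPM at 2 dpf, against 0.809, 0.793, 0.138, and 0.0968 CPM at 1 dpf (log2FC 6.96, SE 0.47, FDR 2.68e-08). Its neighbour by name, *tnni2b.1* (ENSDARG00000035958), had 35, 47.4, and 25.9 CPM at 2 dpf, against 868, 665, 661, and 478 CPM at 1 dpf (log2FC −4.21, SE 0.22, FDR 3.32e-09). Both code for fast troponin I. Reads shared between these copies could be assigned to either, and their sum was not formed here. *tnnt2c*, a further troponin T gene, was also among the 10 largest decreases by fold, with 25.4, 31.6, and 27 CPM at 2 dpf, against 739, 623, 713, and 499 CPM at 1 dpf (log2FC −4.52, SE 0.27, FDR 8.45e-09). *atp2a1l*, related to the calcium pump of the sarcoplasmic reticulum, had 313, 203, and 175 CPM at 2 dpf, against 28.3, 12, 5.29, and 3.27 CPM at 1 dpf (log2FC 4.24, SE 0.80, FDR 0.00033). *desma*, the intermediate filament desmin, was lower (log2FC −1.61, SE 0.23, FDR 2.71e-05). *ryr1a*, the calcium release channel, was the third contraction gene called lower (log2FC −1.14). Of 17 myogenic factors, none was called higher and 5 were lower (median −0.69). *mymk* (ENSDARG00000103988), myomaker, the membrane protein of myoblast fusion, had 3.05, 5.95, and 4.41 CPM at 2 dpf, against 25.7, 28.2, 29.4, and 30.9 CPM at 1 dpf (log2FC −2.67, SE 0.26, FDR 7.24e-07). *myog*, the factor of terminal differentiation, had 5.07, 5.79, and 4.81 CPM at 2 dpf, against 11.4, 10.9, 10.2, and 13.5 CPM at 1 dpf (log2FC −1.14, SE 0.23, FDR 0.00068). *mef2ca*, its partner, had 59.9, 50.9, and 42.3 CPM at 2 dpf, against 206, 170.0, 131, and 161 CPM at 1 dpf (log2FC −1.71, SE 0.22, FDR 1.10e-05). In all 3 the stages were apart. *myod1* had 10.4 to 13.1 CPM at 2 dpf and 20.7 to 32.2 CPM at 1 dpf (log2FC −1.08), and its call was lost without replicate 1 at 1 dpf (−0.90). *myf5* was not called (log2FC −0.61, FDR 0.0408).

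Of 25 heart genes, 4 were called higher and 4 lower (median −0.51), and 5 and 2 with library totals. *nppa* (ENSDARG00000052960) and *nppb* code for the natriuretic peptides of the chamber wall. *nppa* had 15, 16.2, and 18.6 CPM at 2 dpf, against 5.25, 2.13, 2.37, and 1.5 CPM at 1 dpf (log2FC 2.58, SE 0.47, FDR 0.000239). *nppb* had 1.83, 1.8, and 2.97 CPM at 2 dpf, against 0.503, 0.274, 0.263, and 0.653 CPM at 1 dpf (log2FC 2.51, SE 0.39, FDR 5.61e-05). *nkx2.7*, a cardiac progenitor factor, had 1.88, 1.65, and 1.96 CPM at 2 dpf, against 6.47, 7.04, 6.8, and 8.59 CPM at 1 dpf, and was lower without overlap (log2FC −1.97, SE 0.19, FDR 5.53e-07). *actc1a*, an actin of embryonic muscle that is also expressed in somites, had 416, 323, and 286 CPM at 2 dpf, against 1253, 938, 941, and 880.4 CPM at 1 dpf (log2FC −1.55, SE 0.30, FDR 0.000415). *myl7*, the cardiac myosin light chain, had 31, 29.9, and 30.9 CPM at 2 dpf, against 43.8, 52.4, 55.3, and 44.2 CPM at 1 dpf. All 2 dpf libraries were below all 1 dpf libraries, but the log2FC of −0.68 (FDR 0.000319) was under the threshold. Of the other heart genes called, *bmp10l* was at least 5.07-fold higher over the floor, *nfatc1*, of the endocardium, was higher (log2FC 1.26), and *nkx2.5*, a cardiac master factor, and *cmlc1*, a myosin light chain, lower (log2FC −1.12 and −1.07). The call of *nkx2.5* was lost without replicate 4 at 1 dpf (log2FC at the threshold).

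Few endothelial genes were called higher. Of 38, 2 were called higher and 4 lower, and the sign of the median depended on the scaling. *cdh5*, the junction protein VE-cadherin, had 49.6, 49.5, and 48.6 CPM at 2 dpf, against 48.6, 49.3, 57.1, and 56.6 CPM at 1 dpf (log2FC −0.10, FDR 0.344). *etv2* (ENSDARG00000053868), the ETS factor that starts the endothelial lineage, had 7.89, 7.61, and 7.68 CPM at 2 dpf, against 21.8, 18.2, 22.3, and 23.6 CPM at 1 dpf, and was lower with the stages apart (log2FC −1.47, SE 0.14, FDR 7.29e-07). *stab2*, a scavenger receptor of veins, was also lower, with 40.5, 35.7, and 33.4 CPM at 2 dpf, against 75, 89.1, 95.9, and 104 CPM at 1 dpf (log2FC −1.32, SE 0.15, FDR 3.33e-06). *klf2a*, the flow-responsive factor, had 18.3, 16.3, and 22.3 CPM at 2 dpf, against 10.6, 9.19, 7.05, and 11.2 CPM at 1 dpf (log2FC 1.01, SE 0.15, FDR 4.25e-05). Its call was lost without replicate 3 at 2 dpf (log2FC 0.87), replicate 2 at 1 dpf (0.99), or replicate 4 at 1 dpf (0.88), and without replicate 3 at 2 dpf or replicate 4 at 1 dpf a single endothelial gene was called higher. *kdrl*, the VEGF receptor, had 98.4, 47.4, and 49.3 CPM at 2 dpf, against 165, 256, 45.5, and 49.9 CPM at 1 dpf (FDR 0.167). Here the libraries separated by library number and not by stage, with 98.4 to 256 CPM in the earlier set and 45.5 to 49.9 CPM in the later set. Reporter animals of the study carried Tg(kdrl:EGFP), and the part of this transgene in the counts was not tested. The other endothelial genes called were *plvapa*, higher (log2FC 2.92), and *tek*, the angiopoietin receptor, and *cxcr4a*, a chemokine receptor, both lower (log2FC −1.10 and −1.11). The call of *tek* was lost without replicate 1 at 2 dpf (log2FC −0.87) or replicate 5 at 1 dpf (log2FC −0.91).

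In red blood cells, globins changed unequally. Of 13 globin genes tested, 6 were called higher and 1 lower (median 0.98), and 5 and 2 without replicate 1 at 2 dpf. *hbae3* (ENSDARG00000079305), an embryonic alpha globin, had 2599.7, 1741, and 1989 CPM at 2 dpf, against 1309.6, 882, 558, and 526 CPM at 1 dpf (log2FC 1.36, SE 0.29, FDR 0.00107). *hbbe2* had 121, 55.7, and 62 CPM at 2 dpf, against 17.2, 14.9, 6.9, and 8.47 CPM at 1 dpf (log2FC 2.74, SE 0.35, FDR 9.68e-06). *hbbe3*, a beta globin of the primitive wave, had 293, 180.2, and 234 CPM at 2 dpf, against 1119.5, 761, 523, and 482 CPM at 1 dpf (log2FC −1.61, SE 0.30, FDR 0.000346). *hbbe3* was thus the globin that was lower at 2 dpf, with no overlap. *hbbe1.3* was higher (log2FC 1.46, FDR 0.00209), and *hbbe1.1* had 11.5 to 29.5 CPM at 2 dpf and 2.9 to 16.8 CPM at 1 dpf, overlapping, with a call that was lost without replicate 1 at 2 dpf (FDR 0.19) or replicate 2, 4, or 5 at 1 dpf (0.0677, 0.0878, and 0.0762). Several of these genes are near-identical copies, and their single levels are uncertain. The other globins called higher were *hbba2*, at least 3.45-fold over the floor, and *hbae1.3* (log2FC 1.20). The adult globin *hbaa1* stayed at or below 0.191 CPM in all libraries.

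Of 25 erythroid and heme synthesis genes, 5 were called higher and 5 lower (median −0.56). Without replicate 1 at 2 dpf these counts were 3 and 9. *cahz*, the carbonic anhydrase of red cells, had 214, 124, and 132 CPM at 2 dpf, against 75.6, 44.1, 31.9, and 34.1 CPM at 1 dpf (log2FC 1.76, SE 0.28, FDR 9.16e-05). *add2*, an adducin of the membrane skeleton, had 54.1, 56.5, and 59 CPM at 2 dpf, against 22.4, 18.4, 14.9, and 18.1 CPM at 1 dpf (log2FC 1.62, SE 0.14, FDR 2.48e-07). *urod* and *cpox*, of heme synthesis, were lower without overlap. *urod* had 36.8, 19.4, and 15.2 CPM at 2 dpf, against 118, 111, 82.7, and 86 CPM at 1 dpf (log2FC −2.07, SE 0.26, FDR 7.65e-06). *cpox* had 15.4, 19.3, and 19.7 CPM at 2 dpf, against 57.5, 57.3, 59.3, and 63.2 CPM at 1 dpf (log2FC −1.71, SE 0.13, FDR 6.61e-08). *alas2*, the rate-limiting enzyme in red cells, had 103 to 209 CPM at 2 dpf and 61.3 to 132 CPM at 1 dpf (FDR 0.0586). *gata1a*, the erythroid master factor, had 9.9, 4.57, and 4.85 CPM at 2 dpf, against 11.7, 8.73, 8.97, and 11.3 CPM at 1 dpf, and was not called (log2FC −0.66), but was without replicate 1 at 2 dpf (log2FC −1.10). Also higher were *slc4a1a* (log2FC 1.18), *rhag* (log2FC 1.62), and *hemgn* (log2FC 1.07), of which the first codes for the anion exchanger of red cells. The call of *slc4a1a* was lost without replicate 1 at 2 dpf (log2FC 0.82). The call of *hemgn* was lost without replicate 1 at 2 dpf (log2FC 0.76) or replicate 4 at 1 dpf (log2FC 0.99). The other genes called lower were *fech* (log2FC −1.17), *hmbsa* (log2FC −1.52), and *klf17* (log2FC −1.54), and *fech* and *hmbsa* also belong to heme synthesis. The call of *fech* was lost without replicate 3 at 2 dpf (log2FC −0.98).

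Most myeloid genes that were called were higher. Of 13 neutrophil genes, 5 were called higher and none lower (median 0.82). *mpx* (ENSDARG00000019521), myeloperoxidase of neutrophil granules, had 26.6, 58.8, and 32.5 CPM at 2 dpf, against 11, 7.33, 3.97, and 3.12 CPM at 1 dpf (log2FC 2.63, SE 0.44, FDR 0.000122). *lyz*, lysozyme, had 3.48, 5.13, and 4.34 CPM at 2 dpf, against 0.831, 0.479, 0.36, and 0.218 CPM at 1 dpf (log2FC 3.21, SE 0.51, FDR 7.75e-05). Of 17 macrophage genes, 6 were higher and 1 lower (median 0.67), and none was lower without replicate 2 at 2 dpf or replicate 2 or 4 at 1 dpf. *mpeg1.1*, a pore-forming protein of macrophages, had 5.73, 9.64, and 7.24 CPM at 2 dpf, against 3.58, 3.21, 2.94, and 2.47 CPM at 1 dpf (log2FC 1.30, SE 0.27, FDR 0.000888). *marco*, a scavenger receptor, had 1.62, 2.58, and 1.69 CPM at 2 dpf, against 0.678, 0.15, 0.0692, and 0 CPM at 1 dpf (log2FC 3.25, SE 0.49, FDR 4.66e-05). In each of these genes all 2 dpf libraries were above all 1 dpf libraries. *csf1ra*, the macrophage growth factor receptor, had 9.72 to 12.3 CPM at 2 dpf and 4.43 to 6.94 CPM at 1 dpf (log2FC 0.89, FDR 0.000426). The other macrophage genes called higher were *lgals9l1* (log2FC 2.06), *c1qb* (log2FC 1.55), *c1qc* (log2FC 2.18), and *havcr1* (log2FC 1.11), of which *c1qb* and *c1qc* start the classical complement pathway. The call of *c1qb* was lost without replicate 3 at 2 dpf (FDR 0.121), replicate 2 at 1 dpf (FDR 0.0812), replicate 4 at 1 dpf (FDR 0.0916), or replicate 5 at 1 dpf (FDR 0.0726). The call of *havcr1* was lost without replicate 2 at 2 dpf (log2FC 0.91). The gene called lower was *cd74b*, of the MHC class II invariant chain (log2FC −1.09). The call of *cd74b* was lost without replicate 2 at 2 dpf (log2FC −0.93), replicate 2 at 1 dpf (log2FC −0.97), or replicate 4 at 1 dpf (log2FC −0.97). Of 14 genes of blood stem cells and lymphocytes, 2 were higher and none lower, with 1 higher without replicate 3 at 2 dpf and 1 lower without replicate 4 at 1 dpf. *foxn1*, the factor of the thymus epithelium, had 2.12, 2.36, and 2.2 CPM at 2 dpf, against 0.306, 0.369, 0.332, and 0.363 CPM at 1 dpf (log2FC 2.69, SE 0.32, FDR 5.80e-06). *runx1* and *myb*, of blood stem cells, were not called (log2FC 0.86 and −0.77), nor was *rag1* (FDR 0.519). The other gene called higher was *ccr9a*, a chemokine receptor of thymus-homing cells (log2FC 1.50). The call of *ccr9a* was lost without replicate 3 at 2 dpf (FDR 0.0584).

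Of 34 complement genes, 11 were called higher and 3 lower (median 0.50). *c3a.3* had 38.1, 69, and 22.4 CPM at 2 dpf, against 7.93, 3.87, 4.67, and 7.02 CPM at 1 dpf (log2FC 2.90, SE 0.38, FDR 1.28e-05). *c3a.2* had 2.6, 3.97, and 1.6 CPM at 2 dpf, against 0.699, 0.438, 0.429, and 0.581 CPM at 1 dpf (log2FC 2.37, SE 0.41, FDR 0.00016). Both belong to the C3 family, the central component of the cascade, and are close copies. *c3a.1* had 539.9, 394, and 351 CPM at 2 dpf, against 341, 378, 313, and 423 CPM at 1 dpf, overlapping (FDR 0.214). The terminal components *c7b* and the *c6* gene ENSDARG00000093052 were lower. *c7b* had 0.403, 1.17, and 2.31 CPM at 2 dpf, against 15.2, 13.8, 1.29, and 8.64 CPM at 1 dpf (log2FC −2.83, SE 0.84, FDR 0.00999). The 1 dpf values spread over a wide range, with replicate 4 within the 2 dpf range, and in the later set of libraries alone the log2FC was −1.38 with an FDR of 0.184. This *c6* gene had 0.426, 0.0831, and 0.52 CPM at 2 dpf, against 2.84, 1.86, 0.36, and 0.702 CPM at 1 dpf, and its call was lost without replicate 2 at 2 dpf (FDR 0.0805), replicate 1 at 1 dpf (0.0907), or replicate 2 at 1 dpf (0.0641). Here too replicate 4 at 1 dpf lay within the 2 dpf range, and in the later set alone the log2FC was −0.56 with an FDR of 0.583. The third gene called lower was *mbl2*, a mannose-binding lectin of the lectin pathway (log2FC −2.49).

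Plasma proteins, which are made at these stages by the yolk syncytial layer and the young liver, were mixed. Of 47 liver plasma protein genes, 13 were higher and 3 lower (median 0.29), 27.7% and 6.38% against 17.7% and 9.4% of all genes. Without replicate 1 at 2 dpf 5 were lower, and without replicate 2 at 2 dpf 1 was lower. *fabp10a*, the liver fatty acid binding protein, had 0.553, 1.72, and 0.692 CPM at 2 dpf, against 0, 0.0274, 0, and 0.0484 CPM at 1 dpf, at least 17.9-fold higher over the floor. *agt*, angiotensinogen, had 3.31, 6.73, and 4.79 CPM at 2 dpf, against 0.787, 0.615, 0.582, and 0.339 CPM at 1 dpf (log2FC 3.07, SE 0.46, FDR 4.68e-05). *apoda.1*, an apolipoprotein D, had 9.03, 17.7, and 12.4 CPM at 2 dpf, against 1.77, 1.41, 1.29, and 0.895 CPM at 1 dpf (log2FC 3.28, SE 0.35, FDR 1.91e-06). *apoeb*, apolipoprotein E of the yolk layer, had 1796, 999.5, and 1078 CPM at 2 dpf, against 2928, 3336, 2516, and 2578 CPM at 1 dpf (log2FC −1.14, SE 0.24, FDR 0.000857). It was lower with no overlap, but was not called without replicate 2 at 2 dpf (log2FC −0.98). *apoa1a*, at 3130.1 to 4367 CPM at 2 dpf and 3139 to 3940.0 CPM at 1 dpf, was not called (FDR 0.719). *tfa*, transferrin, had a log2FC of −0.79 (FDR 0.000346). Also called lower were *apoa4a* (log2FC −1.23) and a haptoglobin gene, *hp* ENSDARG00000051890, with traces of at most 0.023 CPM at 2 dpf and 0.0726 to 0.191 CPM at 1 dpf. *apoa4a* was not called without replicate 2 at either stage (−0.98 in both). Of 31 gut and pancreas genes, 8 were higher and 5 lower, and 3 were lower without replicate 3 at 2 dpf. *cdx1b*, a factor of the intestine, had 2.91, 4.95, and 3.49 CPM at 2 dpf, against 0.0219, 0.274, 0.415, and 0.0968 CPM at 1 dpf (log2FC 4.01, SE 0.35, FDR 2.48e-07). *cpa5*, a carboxypeptidase, had 4.03, 6.63, and 5.14 CPM at 2 dpf, against 0.437, 0.178, 0.194, and 0.0968 CPM at 1 dpf (log2FC 4.57, SE 0.43, FDR 4.44e-07). *fabp2*, a fatty acid binding protein that is also expressed in the yolk layer, had 184, 85, and 74 CPM at 2 dpf, against 374, 597, 452, and 401 CPM at 1 dpf (log2FC −1.99, SE 0.29, FDR 3.04e-05). *ins*, insulin, had 7.74, 8.3, and 9.71 CPM at 2 dpf, against 5.81, 3.98, 4.43, and 3.05 CPM at 1 dpf, with a log2FC of 0.99 (FDR 0.000356) that fell just short of the threshold and passed it in 14 alternatives. Also lower were *insb* (log2FC −1.48), *amy2a* (log2FC −1.55), *cel.1* (log2FC −2.08), and *fabp6* (log2FC −2.29), of which *amy2a* and *cel.1* code for digestive enzymes. The call of *amy2a* was lost without replicate 3 at 2 dpf (FDR 0.183), replicate 2 at 1 dpf (FDR 0.0645), or replicate 4 at 1 dpf (FDR 0.154). The call of *cel.1* was lost without replicate 3 at 2 dpf (FDR 0.0511). The trypsin gene *prss59.2* did not pass the filter.

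The segmentation clock times the formation of somites from the presomitic mesoderm, which is used up as the axis stops growing. Of 39 tested, 21 were called lower and 2 higher (median −1.15), and 1 was higher when replicate 2 or 3 at 2 dpf or replicate 2 or 4 at 1 dpf was left out. *her1* (ENSDARG00000014722), a core oscillator gene, had 0.0576, 0.0416, and 0.0642 CPM at 2 dpf, against 1.16, 1.87, 2.41, and 3.46 CPM at 1 dpf (log2FC −5.27, SE 0.75, FDR 9.99e-06). *cdx4* (ENSDARG00000036292), a caudal factor of the tail bud, had 0.518, 0.551, and 0.556 CPM at 2 dpf, against 8.55, 11.6, 10, and 13 CPM at 1 dpf (log2FC −4.31, SE 0.35, FDR 1.26e-07). *tbx16* and *msgn1* commit cells to presomitic mesoderm. *tbx16* had 0.572 to 0.657 CPM at 2 dpf and 2.19 to 3.5 CPM at 1 dpf (log2FC −2.26, FDR 0.000103). *msgn1* had 0.27 to 0.403 CPM at 2 dpf and 1.82 to 3 CPM at 1 dpf (log2FC −2.78, FDR 0.000804). *tbxta* (ENSDARG00000101576), Brachyury, of the tail bud and notochord, had 9.27, 10.2, and 13.2 CPM at 2 dpf, against 38.3, 35.3, 32.4, and 27.9 CPM at 1 dpf (log2FC −1.62, SE 0.17, FDR 1.76e-06). In each of these 5 genes, every 2 dpf library was below every 1 dpf library. Of the pair of genes named *evx1* in the table, 1 (ENSDARG00000100087) was higher (log2FC 1.03), but not without replicate 3 at 2 dpf (0.96), replicate 2 at 1 dpf (0.96), or replicate 5 at 1 dpf (0.97). The other gene called higher was *cdx1a* (log2FC 1.52). The call of *cdx1a* was lost without replicate 2 at 2 dpf (FDR 0.0508) or replicate 4 at 1 dpf (FDR 0.0606). Of 24 notochord genes, none was higher and 6 were lower (median −0.48). *col8a1a*, a collagen of the notochord sheath, had 39.9, 34.4, and 34 CPM at 2 dpf, against 201, 179.8, 144, and 168 CPM at 1 dpf (log2FC −2.26, SE 0.20, FDR 2.32e-07). *ihhb*, a hedgehog ligand, had 0.818, 0.925, and 0.627 CPM at 2 dpf, against 3.13, 3.27, 3.06, and 2.64 CPM at 1 dpf (log2FC −1.96, SE 0.24, FDR 5.30e-06). *shha*, sonic hedgehog of the notochord and floor plate, had 32, 33.3, and 31.9 CPM at 2 dpf, against 56.5, 41.7, 55.2, and 40 CPM at 1 dpf (log2FC −0.58, FDR 0.00196). The other notochord genes called lower were *noto* (log2FC −1.96), *ntd5* (log2FC −1.56), and *foxa* (log2FC −1.51), and *noto* keeps cells in the notochord fate.

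The Hox genes, which give position along the body axis, changed little as a whole. Of 48, 4 were called higher and 3 lower, 8.33% and 6.25% against 17.7% and 9.4% of all genes. Without replicate 2 at 2 dpf, 2 were higher and 2 lower, and with upper quartile scaling or library totals 5 were higher and 1 lower. In paralogue groups 1 to 8, 4 of 25 genes were higher and 2 lower. In groups 9 to 13, none of 23 was higher and 1 was lower. Group 5 had a median log2FC of 1.02 over 4 genes, and group 1 one of −0.70 over 4 genes. *hoxb1a* (ENSDARG00000008174), of hindbrain segment 4, had 1.09, 1.64, and 1.02 CPM at 2 dpf, against 4.37, 5.89, 4.89, and 5.2 CPM at 1 dpf (log2FC −2.04, SE 0.20, FDR 6.22e-07). *hoxb1b* had 15.4, 20.5, and 16.6 CPM at 2 dpf, against 39.9, 38.8, 34.4, and 34.1 CPM at 1 dpf (log2FC −1.07, SE 0.14, FDR 1.47e-05), and its call was lost without replicate 1 at 2 dpf (−0.99). *hoxc4a* had 21.9, 36.6, and 32.2 CPM at 2 dpf, against 11.5, 12.1, 12.8, and 12.1 CPM at 1 dpf (log2FC 1.32, SE 0.14, FDR 1.69e-06). *hoxb6b* had 15.2, 25.9, and 22.1 CPM at 2 dpf, against 8.59, 9.53, 11.1, and 7.65 CPM at 1 dpf (log2FC 1.18, SE 0.16, FDR 1.56e-05). *hoxa13b* and *hoxd13a*, of the tail end and fin, were not called (log2FC 0.82 and −0.54). The other Hox genes called were *hoxb5a* and *hoxc5a*, higher (log2FC 1.07 and 1.17), and *hoxc13a*, lower (log2FC −1.04). The call of *hoxb5a* was lost without replicate 2 at 2 dpf (log2FC 0.79) or replicate 5 at 1 dpf (log2FC 0.99). The call of *hoxc5a* was lost without replicate 2 at 2 dpf (log2FC 0.90). The call of *hoxc13a* was lost without replicate 2 at 2 dpf (log2FC −0.79), replicate 1 at 1 dpf (log2FC −0.99), or replicate 2 at 1 dpf (log2FC −0.95).

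**Figure D4:**
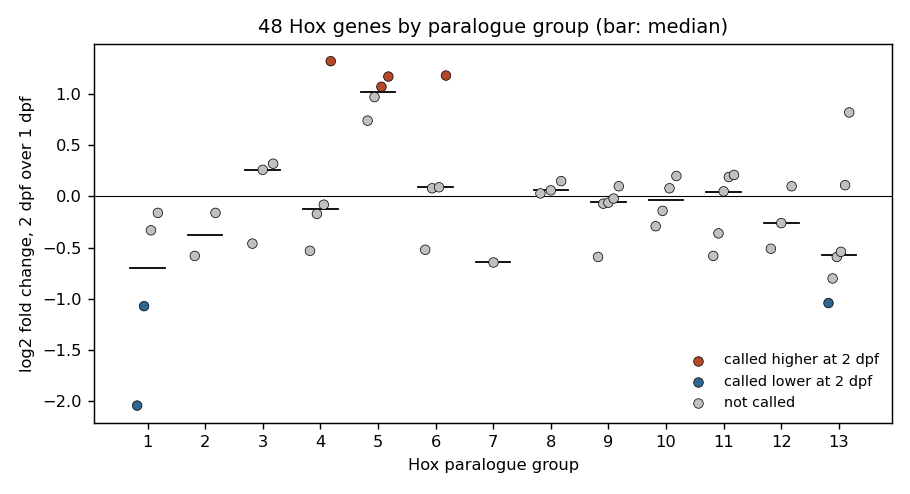
The log2 fold change of 2 dpf over 1 dpf (vertical axis) is shown for 48 Hox genes by paralogue group (horizontal axis), 1 point per gene, with a bar at the median of the group. Red points were called higher, blue points lower, and grey points not called. Called increases lie in groups 4 to 6 and called decreases in groups 1 and 13.

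The hatching gland secretes the enzymes that digest the egg envelope. Of 15 genes tested, 6 were called lower and 2 higher (median −0.62), and the list summed to between 713 and 881 CPM at 2 dpf, against 1776 to 3006 CPM at 1 dpf. *he1.1* (ENSDARG00000023656), the main hatching enzyme, had 246, 171, and 285 CPM at 2 dpf, against 1844, 1517, 682, and 1532 CPM at 1 dpf (log2FC −2.57, SE 0.35, FDR 1.91e-05). *he1.3* (ENSDARG00000022670), a further copy, had 0.415, 0.114, and 0.171 CPM at 2 dpf, against 16.3, 19.9, 16.6, and 60.2 CPM at 1 dpf (log2FC −6.97, SE 0.69, FDR 8.03e-07). The stages did not overlap in either, and replicate 4 was the lowest 1 dpf library for *he1.1*. The symbol *ctslb*, a cathepsin L of the gland, is carried by 4 genes of the table. Of these, ENSDARG00000039173 had 2.26, 0.998, and 2.53 CPM at 2 dpf, against 85.9, 81.5, 44.1, and 58 CPM at 1 dpf (log2FC −5.11, SE 0.37, FDR 4.51e-08), and ENSDARG00000074306 was lower as well (log2FC −3.13, SE 0.44, FDR 2.47e-05). The gene ENSDARG00000087651 had no count at 2 dpf and 0.568, 0.0547, 0.0969, and 0.266 CPM at 1 dpf (FDR 0.0607), and the remaining copy did not pass the filter. Without replicate 2 at 1 dpf, ENSDARG00000087651 had an FDR of 0.0493. *npsn*, an astacin protease that is expressed in neutrophils, was higher (log2FC 2.61, SE 0.43, FDR 0.000107). The other genes called were *hce2l2*, higher (log2FC 1.39), and *he1.2* and *klf17*, the second a factor of the hatching gland, lower (log2FC −3.04 and −1.54).

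Keratins, the filament proteins of the skin, moved in both directions. Of 23 keratins, 6 were called higher and 4 lower (median 0.03), 26.1% and 17.4% against 17.7% and 9.4% of all genes. *krtt1c19e* (ENSDARG00000090268), a keratin of basal keratinocytes, had 1185, 1408, and 1387 CPM at 2 dpf, against 139, 106, 66.4, and 81.6 CPM at 1 dpf (log2FC 3.75, SE 0.36, FDR 6.48e-07). *krt91* had 1123, 1065, and 1257 CPM at 2 dpf, against 139.7, 86.2, 62.6, and 77.6 CPM at 1 dpf (log2FC 3.65, SE 0.30, FDR 1.70e-07). Both were far above 1 dpf in every 2 dpf library. *krt92* had 37.3, 53.2, and 39 CPM at 2 dpf, against 256, 320.1, 194, and 415 CPM at 1 dpf (log2FC −2.78, SE 0.28, FDR 1.11e-06). *krt99* had 2.06, 2.43, and 2.75 CPM at 2 dpf, against 20.8, 31.4, 10.6, and 65.4 CPM at 1 dpf (log2FC −3.71, SE 0.49, FDR 1.36e-05). *krt4*, a keratin of the outer layer with the highest count of any gene in 4 of the 7 libraries, had 14782, 13049, and 18104 CPM at 2 dpf, against 16439.9, 14706, 9596, and 15441 CPM at 1 dpf (FDR 0.66). *cyt1* and *krt5* were not called either (FDR 0.935 and 0.511). The other keratins called higher were *icn2* (log2FC 1.02), *krt1-c5* (log2FC 1.39), *krt18b* (log2FC 1.03), and *krt15* (log2FC 2.59), and the others called lower were *krt1-19d* (log2FC −1.59) and *krt17* (log2FC −1.71). The call of *icn2* was lost without replicate 3 at 2 dpf (log2FC 0.95), replicate 4 at 1 dpf (log2FC 0.93), or replicate 5 at 1 dpf (log2FC 0.92). The call of *krt18b* was lost without replicate 3 at 2 dpf (log2FC 0.80) or replicate 5 at 1 dpf (log2FC 0.98). Of 28 claudins, the tight junction proteins, 2 were higher and 1 lower, with 4 lower without replicate 1 at 2 dpf and 2 without replicate 5 at 1 dpf. *cldn7a* had 2.8, 6.87, and 4.77 CPM at 2 dpf, against 0.787, 0.451, 0.263, and 0.218 CPM at 1 dpf (log2FC 3.52, SE 0.38, FDR 1.81e-06). *cldn11a* was higher as well (log2FC 2.46) and had no adjusted p in DESeq2 (log2FC 2.48). *cldn5a*, of the brain ventricle and vessels, had 19.2 to 22.7 CPM at 2 dpf and 30.5 to 58.2 CPM at 1 dpf (log2FC −1.07), and was not called without replicate 4 at 1 dpf (−0.91). Of 28 ionocyte genes, which regulate the salt balance of the skin, 4 were higher and 1 lower, and none was lower without replicate 3 at 2 dpf or replicate 5 at 1 dpf. *slc12a10.2*, the sodium-chloride cotransporter of these cells, had 5.85, 13.1, and 5.32 CPM at 2 dpf, against 0.568, 0.26, 0.0692, and 0.0968 CPM at 1 dpf (log2FC 5.09, SE 0.52, FDR 1.21e-06). *atp1a1a.5*, a sodium pump subunit, had 6.66, 7.28, and 3.74 CPM at 2 dpf, against 2.3, 1.22, 0.402, and 1.57 CPM at 1 dpf (log2FC 2.18, SE 0.37, FDR 0.000136). *foxi3b* and *trpv6*, the regulator and the calcium channel of ionocytes, were not called (FDR 0.248 and 0.107). The other genes called higher were *rhbg*, an ammonia transporter, and *slc8a1b*, a sodium-calcium exchanger (log2FC 1.27 and 1.18). The call of *rhbg* was lost without replicate 2 at 2 dpf (log2FC 0.94). The gene called lower was *foxi1*, a factor of ionocyte and ear precursors (log2FC −1.13), and it was not called without replicate 3 at 2 dpf (−0.98) or replicate 5 at 1 dpf (−0.99).

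Of 54 collagen genes, 23 were called higher and 4 lower (median 0.69). *col10a1a* (ENSDARG00000054753), a collagen of forming bone, had 31.8, 48.8, and 58.1 CPM at 2 dpf, against 0, 0, 0, and 0.0242 CPM at 1 dpf, at least 838-fold higher over the floor. *col17a1a* (ENSDARG00000069415), which anchors basal keratinocytes to the basement membrane, had 209.5, 244, and 266 CPM at 2 dpf, against 4.33, 3.26, 2.66, and 3.05 CPM at 1 dpf (log2FC 6.19, SE 0.26, FDR 7.26e-10). *col1a1a*, of type I collagen, had 2181, 1201, and 2528 CPM at 2 dpf, against 1025, 923, 489.5, and 1261 CPM at 1 dpf (log2FC 1.09, SE 0.26, FDR 0.00207). Its stages overlapped, and its call was lost without replicate 3 at 2 dpf (log2FC 0.87) or replicate 4 at 1 dpf (0.88). *col5a3a* was lower, with 16, 7.29, and 11.9 CPM at 2 dpf, against 36.5, 48.5, 44.9, and 76.3 CPM at 1 dpf (log2FC −2.13, SE 0.28, FDR 1.43e-05). *col2a1a*, of cartilage and notochord, and *col4a1*, of basement membranes, were not called (log2FC −0.10 and 0.64). Other collagens called lower were *col7a1l* (log2FC −1.19) and *col14a1a* (log2FC −1.57). The call of *col7a1l* was lost without replicate 5 at 1 dpf (log2FC −0.98).

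Actinotrichia are collagen-containing rods that stiffen the fin fold. *and1* (ENSDARG00000088514) and *and2* (ENSDARG00000079302) code for actinodins of these rods. *and1* had 439, 263, and 429 CPM at 2 dpf, against 128, 81.7, 25.4, and 38.9 CPM at 1 dpf (log2FC 2.46, SE 0.46, FDR 0.000314). *and2* had 372, 206, and 356 CPM at 2 dpf, against 55.6, 24.4, 8.6, and 10.4 CPM at 1 dpf (log2FC 3.66, SE 0.55, FDR 4.89e-05). *and3* had 135, 92.9, and 142 CPM at 2 dpf, against 18.9, 8.56, 1.38, and 2.11 CPM at 1 dpf (log2FC 4.01, SE 0.68, FDR 0.000143). DESeq2 gave no adjusted p for *and3* (log2FC 4.02). In these 3 genes the 1 dpf libraries of the earlier set were above those of the later set, and all were below the 2 dpf libraries. They were the only called genes among 12 of the fin fold list, whose median was −0.19. Of 18 fibrillin and elastic fibre genes, 5 were higher and 2 lower (median 0.11). *fbn2b* was not called (log2FC 0.12, FDR 0.733). The fibrillin *fbn2a* (ENSDARG00000051896), called *fbn2* in the paper, had 6.6, 4.21, and 4.35 CPM at 2 dpf, against 2.6, 1.01, 0.956, and 0.726 CPM at 1 dpf (log2FC 1.97, SE 0.40, FDR 0.00066). *elnb*, the elastin gene of the table, had 0.714, 0.686, and 0.906 CPM at 2 dpf, against 0.175, 0.0274, 0, and 0.0242 CPM at 1 dpf (log2FC 3.99, SE 0.60, FDR 1.97e-05). *efemp2b* and *efemp2a* code for fibulin-4, a protein of elastic fibre assembly. *efemp2b* had 7.9, 7.86, and 9.67 CPM at 2 dpf, against 43.2, 64.1, 40.2, and 60.7 CPM at 1 dpf (log2FC −2.62, SE 0.26, FDR 9.06e-07). *efemp2a* had 36.3, 41, and 35.3 CPM at 2 dpf, against 120.3, 146, 114, and 146 CPM at 1 dpf (log2FC −1.81, SE 0.21, FDR 3.12e-06). Of 8 lysyl oxidases, which cross-link collagen and elastin, 2 were higher and 1 lower. *loxa* had 0.922, 0.79, and 1.22 CPM at 2 dpf, against 0.175, 0.041, 0.0138, and 0.0242 CPM at 1 dpf (log2FC 4.11, SE 0.43, FDR 5.01e-07). *loxl5b* had 2.81, 1.56, and 2.48 CPM at 2 dpf, against 20.8, 14.5, 13.9, and 15.6 CPM at 1 dpf (log2FC −2.82, SE 0.22, FDR 8.11e-08). The stages did not overlap in any of these called genes. The other elastic fibre genes called higher were *fbln5* (log2FC 1.74), *ltbp1* (log2FC 1.10), and *mfap5* (log2FC 2.22), and the other lysyl oxidase called higher was *loxl3a* (log2FC 2.99). The call of *ltbp1* was lost without replicate 4 at 1 dpf (log2FC 0.98).

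Of 24 matrix metalloproteinases, 7 were called higher and 2 lower (median 0.48), and 1 was lower without replicate 3 at 2 dpf or replicate 2 or 4 at 1 dpf. *mmp24* had 12.7, 19.8, and 20.4 CPM at 2 dpf, against 1.44, 1.89, 2.01, and 2.25 CPM at 1 dpf (log2FC 3.22, SE 0.28, FDR 2.48e-07). *mmp9* had 7.27, 8.53, and 8.23 CPM at 2 dpf, against 17.4, 5.05, 5.14, and 5.59 CPM at 1 dpf, with replicate 1 at 1 dpf above all others (FDR 0.958). *mmp2* had 126, 146, and 143 CPM at 2 dpf, against 108, 105, 93.1, and 103 CPM at 1 dpf. All 2 dpf libraries were above all 1 dpf libraries, by a log2FC of 0.44 (FDR 0.000708). The genes called lower were *mmp17b* (log2FC −1.03) and *mmp13b* (log2FC −2.87). The call of *mmp17b* was lost with library totals (log2FC −0.87) and without replicate 3 at 2 dpf (log2FC −0.99), replicate 2 at 1 dpf (log2FC −0.97), or replicate 4 at 1 dpf (log2FC −0.97).

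Genes of the skeleton were split into a cartilage and a bone list. Of 30 cartilage genes, 7 were called higher and 2 lower (median 0.24), 23.3% and 6.67% against 17.7% and 9.4% of all genes. The cartilage shares were thus near those of all genes. Of 22 bone genes, 8 were called higher and 3 lower (median 0.38), 36.4% and 13.6%. *matn1* and *matn3a* code for matrilins of the cartilage matrix. *matn1* had 1.28, 8.11, and 4.48 CPM at 2 dpf, against 0.0874, 0.0547, 0.0415, and 0.315 CPM at 1 dpf (log2FC 5.45, SE 1.07, FDR 0.000429). *matn3a* had 58.9, 63, and 72.6 CPM at 2 dpf, against 5.88, 2.94, 1.91, and 0.315 CPM at 1 dpf (log2FC 4.56, SE 0.61, FDR 1.52e-05). *comp*, cartilage oligomeric matrix protein, had 23, 23.1, and 21 CPM at 2 dpf, against 79.8, 89.5, 62.8, and 82.8 CPM at 1 dpf, and was lower without overlap (log2FC −1.82, SE 0.20, FDR 2.52e-06). *sox9a*, the chondrocyte master factor, had a log2FC of 0.76 (FDR 0.000206). *ifitm5*, of osteoblasts, had 1.43, 1.74, and 2.34 CPM at 2 dpf, against 0.0437, 0.0274, 0.0692, and 0.0968 CPM at 1 dpf (log2FC 5.02, SE 0.43, FDR 2.35e-08). *gdf5*, a growth factor of forming joints, had 1.68, 2.03, and 1.9 CPM at 2 dpf, against 0, 0.0274, 0.0277, and 0 CPM at 1 dpf, at least 33.9-fold higher over the floor. *runx2b*, which starts the osteoblast lineage, was higher (log2FC 1.29, FDR 0.000624), and *sp7*, its target factor, had 3.25 to 3.71 CPM at 2 dpf and 3.56 to 5.88 CPM at 1 dpf (FDR 0.136). *acp5a*, an acid phosphatase known from osteoclasts, had 46.2, 11.6, and 63.4 CPM at 2 dpf, against 176, 206, 208, and 234 CPM at 1 dpf (log2FC −2.35, SE 0.41, FDR 0.000184), with replicate 2 the lowest at 2 dpf. *phospho1* had 15.9, 9.71, and 10.2 CPM at 2 dpf, against 23.3, 22.1, 22.3, and 57.8 CPM at 1 dpf (log2FC −1.39, SE 0.32, FDR 0.0019), and without replicate 5 at 1 dpf its log2FC was −0.92. Also called lower were *snorc*, of cartilage (log2FC −1.68), and *mgp*, the matrix Gla protein (log2FC −1.83).

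Of 22 neural crest genes, 3 were called higher and 3 lower, 13.6% in each direction against 17.7% and 9.4% of all genes. These shares were not far from those of all genes, and the sign of the median depended on the scaling. *tfap2b* (ENSDARG00000012667) and *tfap2e* code for AP-2 factors that are also expressed in neurons and pigment cells. *tfap2b* had 88.4, 110.1, and 106 CPM at 2 dpf, against 15, 14.3, 15.9, and 13.2 CPM at 1 dpf (log2FC 2.79, SE 0.18, FDR 2.13e-08). *tfap2e* had 34.2, 34.7, and 40.5 CPM at 2 dpf, against 11.7, 9.16, 12, and 10.2 CPM at 1 dpf (log2FC 1.76, SE 0.19, FDR 1.50e-06). *crestin*, a marker of migrating crest, had 8.5, 4.69, and 3.6 CPM at 2 dpf, against 19.7, 17.2, 11.2, and 15.7 CPM at 1 dpf (log2FC −1.52, SE 0.28, FDR 0.000251). *snai1b*, of delaminating cells, had 10.2, 12.9, and 15.7 CPM at 2 dpf, against 28, 25.5, 25.5, and 40.5 CPM at 1 dpf (log2FC −1.20, SE 0.23, FDR 0.000413). Both were lower without overlap. *foxd3* and *sox10* were not called (FDR 0.0717 and 0.716). The other crest genes called were *tfap2a*, higher, and *pax3a*, lower (log2FC 1.01 and −1.18). The call of *tfap2a* was lost without replicate 2 at 2 dpf (log2FC 0.96) or replicate 4 at 1 dpf (log2FC 0.98). Of 18 melanin genes, 6 were higher and none lower (median 0.87), and 10 were higher without replicate 1 at 1 dpf. Without replicate 3 at 2 dpf or replicate 4 or 5 at 1 dpf, 1 was lower. *tyrp1b*, of the melanosome, had 299, 291, and 316 CPM at 2 dpf, against 174, 102, 100.1, and 62.7 CPM at 1 dpf (log2FC 1.46, SE 0.39, FDR 0.00492). *dct*, dopachrome tautomerase of the same pathway, had 155, 153, and 174 CPM at 2 dpf, against 107, 75, 71.8, and 50.1 CPM at 1 dpf (log2FC 1.08, SE 0.32, FDR 0.0101), and was not called without replicate 5 at 1 dpf (0.93). *pmela*, of the melanosome fibrils, had a log2FC of 0.84 and was called without replicate 1 at 1 dpf (1.07). *tyr*, tyrosinase, had 33.5 to 51.8 CPM at 2 dpf and 31.8 to 44.3 CPM at 1 dpf (FDR 0.597). The other melanin genes called higher were *pmelb* (log2FC 1.42), *trpm1a* (log2FC 2.32), *mc1r* (log2FC 1.43), and *slc24a4a* (log2FC 1.10), and *mc1r* is the melanocortin receptor of melanophores. The call of *slc24a4a* was lost without replicate 4 at 1 dpf (log2FC 0.99). Of 26 genes of xanthophores and iridophores, 4 were higher and 2 lower, with 5 lower without replicate 1 at 2 dpf and 4 without replicate 4 at 1 dpf. *pnp4a* and *ltk*, of iridophores, were higher (log2FC 1.60, SE 0.22, FDR 2.08e-05, and log2FC 1.70, SE 0.21, FDR 8.48e-06). So were *xdh* (log2FC 1.49) and *alx4b* (log2FC 1.56). *gart* and *ppat*, enzymes of purine synthesis that dividing cells also use, were lower (log2FC −1.87 and −1.11).

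In the inner ear, 11 of 30 genes were called higher and 3 lower (median 0.48). *pou4f3*, the hair cell factor, had 1.5, 2.99, and 2.79 CPM at 2 dpf, against 0.197, 0.0547, 0.0415, and 0.121 CPM at 1 dpf (log2FC 4.73, SE 0.58, FDR 4.38e-06). *otogl*, of the tectorial and otolith membranes, had 2.5, 3.07, and 3.17 CPM at 2 dpf, against 0.962, 0.438, 0.762, and 0.557 CPM at 1 dpf (log2FC 2.13, SE 0.25, FDR 4.24e-06). *oc90* (ENSDARG00000001721), the otolith matrix protein otoconin, had 22.1, 13.7, and 13.9 CPM at 2 dpf, against 107, 113, 129, and 115 CPM at 1 dpf, and was lower without overlap (log2FC −2.81, SE 0.22, FDR 1.17e-07). *otomp*, also of otoliths, had 23.1, 24.4, and 22.6 CPM at 2 dpf, against 14.8, 15.4, 20.7, and 18.1 CPM at 1 dpf (log2FC 0.44, FDR 0.00856). The other ear genes called lower were *loxhd1b*, of hair cells, and *pvalb9*, a parvalbumin (log2FC −2.10 and −1.14). Of 23 kidney genes, 3 were higher and 2 lower (median −0.31). *lhx1a*, of the early kidney field and of many neurons, had 117, 138, and 134 CPM at 2 dpf, against 14.6, 12.8, 17.1, and 12 CPM at 1 dpf (log2FC 3.20, SE 0.21, FDR 1.68e-08). *cdh17*, of the kidney duct, and *clcnk*, a chloride channel of the tubule, were lower (log2FC −1.28, FDR 6.00e-05, and log2FC −1.48, FDR 3.42e-05). *pax2a* had a log2FC of 0.75 (FDR 0.000243). Also called higher was *pax8*, also of the ear and thyroid (log2FC 1.13).

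Nearly all cell division genes were lower. Of 94 genes of DNA replication and mitosis, 59 were called lower and none higher, and 93 of the 94 were lower at an FDR under 0.05 at any fold (27.6% of all genes). The median log2FC was −1.14, and the list summed to between 7287 and 9481 CPM at 2 dpf, against 15689 to 19372 CPM at 1 dpf. *pcna* (ENSDARG00000054155), the sliding clamp of DNA polymerase, had 598, 357, and 350.5 CPM at 2 dpf, against 1223, 1167, 1310.1, and 999 CPM at 1 dpf (log2FC −1.43, SE 0.21, FDR 3.23e-05). *cdc6*, which licenses replication origins, had 36.1, 22.9, and 26.6 CPM at 2 dpf, against 90.2, 103, 123, and 85.5 CPM at 1 dpf (log2FC −1.82, SE 0.17, FDR 5.00e-07). *rfc2*, of the clamp loader, had 33.9, 18.7, and 17.9 CPM at 2 dpf, against 77.8, 81.2, 86.1, and 63.3 CPM at 1 dpf (log2FC −1.72, SE 0.23, FDR 1.72e-05). The stages were apart, and replicate 1 was the highest 2 dpf library in all 3. *ccnb1*, cyclin B1 of mitosis, had 106, 86.7, and 91.9 CPM at 2 dpf, against 209.8, 188, 219.6, and 186 CPM at 1 dpf (log2FC −1.08, SE 0.13, FDR 6.37e-06). *mki67*, the proliferation marker Ki-67, had 589.7, 514, and 558 CPM at 2 dpf, against 642, 923, 1146, and 1009 CPM at 1 dpf, with a log2FC of −0.75 (FDR 0.000948) that was short of the threshold. *cad* (ENSDARG00000041895), the enzyme that starts pyrimidine synthesis, was among the largest decreases in CPM, with 221, 147, and 176 CPM at 2 dpf, against 629, 825, 808, and 1229 CPM at 1 dpf (log2FC −2.27, SE 0.21, FDR 4.30e-07).

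Ribosome biogenesis had the largest decrease of the 54 lists by its median. Of 53 genes tested, 48 were called lower and none higher, and all 53 were lower at an FDR under 0.05 (median log2FC −1.25). The list summed to between 2439 and 4375 CPM at 2 dpf, against 7225 to 8417 CPM at 1 dpf. *ncl* (ENSDARG00000002710), nucleolin, had 995, 507, and 513 CPM at 2 dpf, against 1738, 1620.3, 1613, and 1414 CPM at 1 dpf (log2FC −1.25, SE 0.22, FDR 0.000189). *npm1a*, nucleophosmin, had 289.5, 142, and 137 CPM at 2 dpf, against 726, 659.7, 566, and 562 CPM at 1 dpf (log2FC −1.73, SE 0.25, FDR 3.17e-05). *fbl*, the rRNA methylase fibrillarin, had 163, 99.2, and 94.4 CPM at 2 dpf, against 372, 358, 373, and 334 CPM at 1 dpf (log2FC −1.60, SE 0.19, FDR 3.85e-06). *bop1*, which processes the large subunit rRNA, had 49.6, 29.9, and 29.7 CPM at 2 dpf, against 97.4, 121, 127, and 112 CPM at 1 dpf (log2FC −1.65, SE 0.19, FDR 3.75e-06). In each, replicate 1 was the highest 2 dpf library by a wide margin and remained below all 1 dpf libraries. Cytoplasmic ribosomal proteins were lower by less. None of 82 was called, since none passed the fold threshold, but 79 were lower at an FDR under 0.05 and 1, *rps8b*, was higher (median −0.62). Without replicate 1 at 2 dpf, 1 was called higher. *rplp0* had 2712, 2021, and 2660.1 CPM at 2 dpf, against 5058, 3957, 4172, and 3749 CPM at 1 dpf (log2FC −0.78, SE 0.14, FDR 0.000215). *rps6* had 1582, 1219, and 1583 CPM at 2 dpf, against 2827, 2301, 2345, and 2081 CPM at 1 dpf (log2FC −0.71, SE 0.14, FDR 0.000487), both without overlap.

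**Figure D5:**
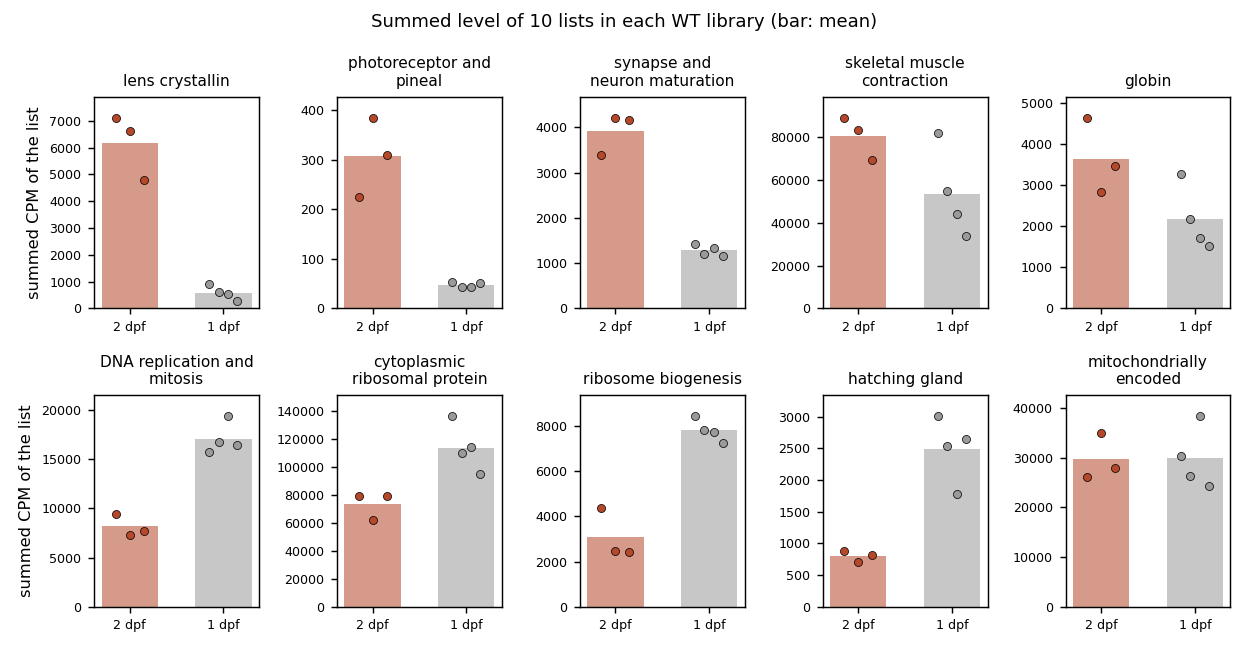
Each panel gives the summed CPM of the genes of 1 list in each WT library at 2 dpf (left, red) and 1 dpf (right, grey), with a bar from 0 to the mean of the stage. Lens, photoreceptor, and synapse sums are higher at 2 dpf in every library, and those of DNA replication, ribosomal proteins, ribosome biogenesis, and the hatching gland lower. Sums for skeletal muscle, globins, and mitochondrially encoded genes overlap between the stages.

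Energy metabolism changed in parts. Of 34 glycolytic genes, 11 were called higher and none lower (median 0.79). Without replicate 1 at 1 dpf 19 were higher, and without replicate 3 at 2 dpf 2 were lower. *pkmb* (ENSDARG00000099860), a pyruvate kinase, had 298, 272, and 297 CPM at 2 dpf, against 41.9, 29.7, 10.6, and 19 CPM at 1 dpf (log2FC 3.52, SE 0.34, FDR 7.16e-07). *pkma* had 112, 101, and 110.4 CPM at 2 dpf, against 63, 32.2, 36.7, and 38.3 CPM at 1 dpf (log2FC 1.35, SE 0.18, FDR 1.19e-05). *pfkma*, a muscle phosphofructokinase, had 52, 60.4, and 42.3 CPM at 2 dpf, against 26.2, 12.4, 9.15, and 2.47 CPM at 1 dpf (log2FC 2.04, SE 0.56, FDR 0.00584). *gapdh* had 1386, 1401, and 1411 CPM at 2 dpf, against 1193, 842, 717, and 568 CPM at 1 dpf, with a log2FC of 0.75 (FDR 0.00364), and was called without replicate 1 at 1 dpf (1.00). Of 97 nuclear genes of oxidative phosphorylation, 4 were higher and 1 lower, and 2 were lower without replicate 1 at 2 dpf. *cox4i1l*, of a cytochrome c oxidase subunit, had 2.74 to 17.8 CPM at 2 dpf and 0.152 to 1.33 CPM at 1 dpf (log2FC 3.64, FDR 0.00012). *cox8b*, of a further subunit, had 3.19 to 4.48 CPM at 2 dpf and 0.194 to 1.66 CPM at 1 dpf (log2FC 2.56, FDR 0.000146). Also higher were *cox5b2* (log2FC 1.95) and *cox4i2* (log2FC 1.54), and *ndufs8b* was lower (log2FC −2.10). *cox4i1* and *atp5f1b* were not called (FDR 0.439 and 0.371). None of the 13 mitochondrially encoded genes had an FDR under 0.05 (median 0.04).

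Of 21 genes of gluconeogenesis and glycogen, 4 were higher and 2 lower, and 1 was lower without replicate 1 or 2 at 2 dpf or replicate 1 or 2 at 1 dpf. Without replicate 1 at 1 dpf 6 were higher. *pygl* (ENSDARG00000002197), the liver glycogen phosphorylase, had 41.6, 81.7, and 47 CPM at 2 dpf, against 4.28, 4.68, 6.36, and 5.3 CPM at 1 dpf (log2FC 3.46, SE 0.21, FDR 9.65e-09). *fbp2*, the muscle fructose bisphosphatase, was higher (log2FC 2.61, SE 0.27, FDR 1.21e-06), and *pcxb*, a pyruvate carboxylase, was lower, with 113, 86.9, and 140.4 CPM at 2 dpf, against 319, 272, 232, and 419.9 CPM at 1 dpf (log2FC −1.45, SE 0.20, FDR 2.23e-05). *pck1* had 19.7 to 69.5 CPM at 2 dpf and 23.5 to 30.4 CPM at 1 dpf (FDR 0.211). The other genes called were *phkg1a*, of phosphorylase kinase, and *ugp2a*, which makes UDP-glucose, both higher (log2FC 1.28 and 2.28), and *fbp1b*, lower (log2FC −1.05). The call of *phkg1a* was lost without replicate 1 at 2 dpf (log2FC 0.65) or replicate 4 at 1 dpf (FDR 0.0507). The call of *fbp1b* was lost without replicate 1 at 2 dpf (log2FC −0.98), replicate 2 at 2 dpf (log2FC −0.88), replicate 1 at 1 dpf (log2FC −0.91), or replicate 2 at 1 dpf (log2FC −0.97). Of 27 cholesterol genes, 4 were higher and none lower (median 0.15). *ldlra*, the LDL receptor, had 3.84, 5.2, and 2.63 CPM at 2 dpf, against 0.24, 0.0274, 0.0831, and 0.145 CPM at 1 dpf (log2FC 5.13, SE 0.56, FDR 1.52e-06). *hmgcra*, HMG-CoA reductase, had 9.49, 11, and 2.55 CPM at 2 dpf, against 2.47, 1.98, 2.99, and 1.65 CPM at 1 dpf (log2FC 1.72, SE 0.39, FDR 0.00148), with replicate 3 at 2 dpf within the 1 dpf range. *msmo1* and *tm7sf2*, of the later steps of the pathway, were the other genes called higher (log2FC 1.64 and 1.54). Of 78 cytochrome P450 genes, 21 were higher and 11 lower (median 0.21). *cyp4t8* (ENSDARG00000004964) had 2.57, 2.46, and 2.06 CPM at 2 dpf, against 59.8, 57.3, 53.7, and 51.1 CPM at 1 dpf, with little spread within either stage and the smallest FDR of the named genes (log2FC −4.56, SE 0.15, FDR 8.45e-11). *cyp11a1*, which starts steroid synthesis, had 0.0922, 0.26, and 0.15 CPM at 2 dpf, against 1.77, 3.09, 5.05, and 0.726 CPM at 1 dpf (log2FC −4.06, SE 0.80, FDR 0.00054). *cyp1c1*, a target of the aryl hydrocarbon receptor, was higher (log2FC 2.51, FDR 1.60e-06), and *cyp1a* and the retinoic acid hydroxylase *cyp26a1* were not called (FDR 0.15 and 0.805).

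Stress genes gave no common increase. Of 26 heat shock genes, 1 was called higher and 6 lower (median −0.34). The number higher was 4 without replicate 3 at 2 dpf, 2 without replicate 1 at 1 dpf, and 0 without replicate 4 at 1 dpf. The gene called higher was *hsp90b1*, the HSP90 of the endoplasmic reticulum (log2FC 1.01), which lost its call without replicate 2 at 2 dpf (0.89), replicate 1 at 1 dpf (0.98), or replicate 4 at 1 dpf (0.93). *hspb1* and *hspb8* code for small heat shock proteins that are expressed in muscle and heart. *hspb1* had 39.2, 25.1, and 19.9 CPM at 2 dpf, against 282, 233, 196, and 179 CPM at 1 dpf (log2FC −2.99, SE 0.24, FDR 1.32e-07). *hspb8* had 31.6, 25.8, and 25.3 CPM at 2 dpf, against 146, 126, 105, and 111 CPM at 1 dpf (log2FC −2.15, SE 0.16, FDR 7.53e-08). *hsp90aa1.1*, the HSP90 of embryonic muscle, had 461, 166, and 89.7 CPM at 2 dpf, against 891, 904, 837, and 851 CPM at 1 dpf (log2FC −1.87, SE 0.39, FDR 0.000888). The other genes called lower were *hspb11* (log2FC −1.42), *bag3* (log2FC −1.45), and *unc45b* (log2FC −1.81), and *unc45b* is a chaperone of muscle myosin. *hsp70l*, the inducible HSP70, had 40.2, 2.51, and 2.47 CPM at 2 dpf, against 11, 3.02, 1.02, and 3.05 CPM at 1 dpf, with replicate 1 the highest library at both stages (FDR 0.116), and was called higher without replicate 3 at 2 dpf (FDR 0.0484) or replicate 1 at 1 dpf (FDR 0.0359). Of 25 genes of the DNA damage response, 2 were higher and 1 lower, with 1 higher without replicate 2 and 2 lower without replicate 3 at 2 dpf. *cdkn1a*, the p21 cell cycle inhibitor, had 2.3, 1.81, and 1.7 CPM at 2 dpf, against 7.72, 4.58, 5.32, and 5.25 CPM at 1 dpf (log2FC −1.56, SE 0.23, FDR 4.11e-05), and *zmat3* was higher (log2FC 1.78, FDR 7.16e-05). *sesn1*, a sestrin, was higher as well (log2FC 1.11), but not without replicate 2 at 2 dpf (0.89). *mdm2*, a ubiquitin ligase, had a log2FC of −0.87 and was not called. Of 38 clock genes, 9 were higher and none lower (median 0.18), and 3 were lower without replicate 1 at 2 dpf. *roraa* and *nr1d2a*, nuclear receptors of the clock, were higher (log2FC 2.79, SE 0.32, FDR 3.54e-06, and log2FC 2.48, SE 0.51, FDR 0.000701). The light-induced gene *per2* had 79.6, 24, and 18 CPM at 2 dpf, against 84.6, 39.5, 31.5, and 22.3 CPM at 1 dpf. Replicate 1 was the highest library at both stages, and *per2* was called lower without replicate 1 at 2 dpf (log2FC −1.08). *per3* and *nr1d1* were not called (FDR 0.521 and 0.636).

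Among ligands, 7 of 24 *wnt* genes were called lower and 2 higher, against 9.4% and 17.7% of all genes. *wnt11*, a ligand of the non-canonical pathway, had 2.19, 2.91, and 3.16 CPM at 2 dpf, against 9.25, 7.74, 7.24, and 8.01 CPM at 1 dpf (log2FC −1.54, SE 0.18, FDR 4.29e-06). *wnt16* had 1.94, 3.06, and 2.78 CPM at 2 dpf, against 7.56, 8.47, 9.14, and 9.53 CPM at 1 dpf (log2FC −1.74, SE 0.18, FDR 1.33e-06). Both were lower in every 2 dpf library. *wnt4b* was higher (log2FC 1.15, SE 0.24, FDR 0.000809), as was *wnt2ba* (log2FC 1.47). Of 31 *fgf* genes, 10 were higher and 3 lower (median 0.30). *fgf12a* and *fgf14*, intracellular members of the family that bind sodium channels in neurons, were higher (log2FC 2.98 and 2.56). *fgf8a* (ENSDARG00000003399) and *fgf17* code for signals of the midbrain-hindbrain boundary and tail bud. *fgf8a* had 2.57, 2.25, and 2.71 CPM at 2 dpf, against 6.32, 7.56, 5.87, and 5.06 CPM at 1 dpf (log2FC −1.31, SE 0.16, FDR 7.91e-06). *fgf17* had 0.864, 1.01, and 1.16 CPM at 2 dpf, against 3.5, 3.94, 3.66, and 4.74 CPM at 1 dpf (log2FC −1.94, SE 0.22, FDR 3.61e-06). *fgf10a*, of limb and fin buds, was not called (FDR 0.426). The third gene called lower was *fgf1a* (log2FC −1.11). The call of *fgf1a* was lost without replicate 2 at 2 dpf (FDR 0.0695), replicate 3 at 2 dpf (log2FC −0.78), replicate 1 at 1 dpf (log2FC −0.88), or replicate 2 at 1 dpf (log2FC −0.97).

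Genes outside the lists were also among the largest changes by fold. *ampd1*, the AMP deaminase of muscle, had 77.9, 165, and 42.3 CPM at 2 dpf, against 0.678, 0.383, 0.277, and 0.411 CPM at 1 dpf (log2FC 7.82, SE 0.53, FDR 2.73e-08). *prtgb* (ENSDARG00000040442), a protogenin of the immunoglobulin superfamily, had 4.92, 3.59, and 3.79 CPM at 2 dpf, against 111, 121, 231, and 137 CPM at 1 dpf, far lower at 2 dpf in every library (log2FC −5.20, SE 0.34, FDR 1.71e-08). *ednrab*, an endothelin receptor, had 1.35, 1.28, and 1.38 CPM at 2 dpf, against 24.8, 30.3, 32.9, and 41.5 CPM at 1 dpf (log2FC −4.60, SE 0.39, FDR 1.90e-07). *wfikkn1*, a secreted inhibitor of GDF ligands, had 1.23, 0.281, and 0.378 CPM at 2 dpf, against 18, 13.8, 14.3, and 20.2 CPM at 1 dpf (log2FC −4.78, SE 0.33, FDR 3.53e-08). *ctss2.1*, a cathepsin S, and *abcb11a*, of the bile salt export pump family, had means at 2 dpf that were 22.7-fold and 21.3-fold lower. By CPM, 2 genes named *afp4* had large decreases. The gene ENSDARG00000095863 had 628, 341, and 484 CPM at 2 dpf, against 1385, 1658, 1033, and 1176 CPM at 1 dpf (log2FC −1.44, SE 0.28, FDR 0.000409). The gene ENSDARG00000041490 had 245, 47.3, and 72.9 CPM at 2 dpf, against 821, 1013, 728, and 857 CPM at 1 dpf (log2FC −2.81, SE 0.55, FDR 0.000444). The lysosomal gene *psap* was lower (log2FC −1.30, SE 0.17, FDR 9.34e-06), and *serbp1a*, which binds ribosomes, had a log2FC of −1.04 that was not called without replicate 2 at 2 dpf (−0.92) or replicate 1 at 1 dpf (−0.95). In 40 genes, 24 with a symbol, all 1 dpf libraries had 3 counts or fewer and all 2 dpf libraries at least 30. No gene showed the reverse. These counts were not scaled by depth, which was greater in every 2 dpf library than in any 1 dpf library. The rule was thus easier to meet in the first direction.

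The same stage contrast was set against that of *fbn3*-/- embryos. The difference between both stage changes was called for 1 of 23555 genes (0.00425%), *cart3* (ENSDARG00000035852), with an FDR under 0.05 and an absolute log2 difference above 1. An unadjusted p under 0.05 in the same test was found for 1299 of the 23555 genes. Without any difference, a share of about 0.05 of all genes would fall there, so that these genes are not read as an excess. The number of genes called depended on the method, with 3 with a term for the library number set and 31 with DESeq2. With so few libraries per group, a gene without a call may still differ, and equal stage changes are not shown. *cart3*, a precursor of a CART neuropeptide that was named after its values were seen, had 1.27, 1.23, and 0.963 CPM at 2 dpf, against 3.04, 2.33, 2.19, and 1.77 CPM at 1 dpf in WT embryos (log2FC −1.03, SE 0.22, FDR 0.000831). In *fbn3*-/- embryos the mean level was 6.71 ± 1.22 CPM in 5 libraries at 2 dpf and 2.38 ± 0.112 CPM in 3 libraries at 1 dpf (± SD), and the difference of the stage changes was 2.53 on the log2 scale (FDR 0.00403, edgeR). The WT call of *cart3* was lost without replicate 3 at 2 dpf (log2FC −0.90) or replicate 1 at 1 dpf (−0.88). Of the 6376 genes called in WT, 6320 changed in the same direction between the stage means in CPM of *fbn3*-/- embryos. These genes were selected for their stage change in WT, and the mutants span the same stages. The share over all genes was not formed, so that the count is no result about the called genes. The genotypes do not share control libraries in this contrast. All mutant libraries at 1 dpf fall in the earlier set of library numbers, and those at 2 dpf in both sets. In WT both stages hold both sets, so that the contrast is not balanced over the sets.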

How the data were processed

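RNA-seq libraries of pooled zebrafish embryos were analysed from the gene count table that the authors deposited. Per the paper's methods, the authors prepared stranded total RNA libraries (TruSeq), sequenced them on a NovaSeq6000, and aligned reads to GRCz11 with STAR. The submitters' processing notes name Trim Galore 0.6.6, STAR 2.7.6a, and featureCounts of Subread 2.0.0. The deposited values are whole, unnormalized read counts per gene. The strand setting of the counting, its handling of reads that fit several genes, and the annotation release are not given in the sources used here, so that close paralogues and antisense pairs are uncertain. Columns were assigned to samples by library name, and 8 columns that matched no label were not used.

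Genes were kept with edgeR's filterByExpr (minimum count 10, minimum total 15), which left 23555 of 32520. All 15 libraries entered a single fit with TMM scaling in edgeR 4.0.16 (R 4.3.3, limma 3.58.1), with 1 coefficient per genotype and stage, and 2 dpf was contrasted with 1 dpf in WT. P-values were adjusted by the Benjamini-Hochberg method over all genes tested. A call required an FDR under 0.05 and an absolute log2FC above 1. On simulated counts for 23555 genes of this contrast, 69 of 100 genes with a fold of 2 had an FDR under 0.05. With a fold of 4 it was 100 of 100, and 7 unchanged genes also passed. The log2FC threshold was not applied in this simulation. Its changed genes had a mean above 1 CPM, and the dispersion was set to 0.05 for all genes. Far fewer genes were changed in it than the 12852 with an FDR under 0.05 in the data. The adjustment was thus stricter in the simulation, and its rates do not carry over to the contrast. The difference between the stage changes of mutant and WT came from the same fit, and the direction of the mutant change from its mean CPM. Beyond the pooling of embryos, no label tells whether replicates came from separate clutches, so that p-values measure the spread between these libraries.

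The members and the 54 gene lists were chosen with earlier results of these data known. Genes are named if they are anchors of a list, among the 10 called genes per direction with the largest log2FC or the largest difference in CPM, among the 2 called genes per list and direction with the largest log2FC (mean of at least 1 CPM), or among 5 genes with at most 3 counts in each library of one stage and at least 30 in each library of the other. Genes named for their values are marked as such. Some genes that the rule takes are not reported here. The largest log2FC were taken among genes with a symbol, no overlap of the stages, and a mean of at least 10 CPM at the higher stage. A fold against a stage with at most 3 counts per library is a bound, computed with 3 counts per library. The SE of a log2FC comes from the same fit and includes the spread between libraries. The bounds carry no estimate of error.

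Alternatives were RLE and upper quartile scaling, library totals, no filter, a filter of 1 CPM in 3 libraries, WT libraries alone, the legacy quasi-likelihood fit, glmTreat, a term for the library number set, DESeq2 1.42.0, leaving out each WT library, and a replicate block. The libraries of the later number set alone, and WT libraries with a set term, were added after the data were seen. Summaries and plots were made with Python 3.11.15 (numpy 2.4.6, pandas 2.3.3, matplotlib 3.10.9).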

Additional observations from a re-analysis of the deposited data

Results flagged for a closer look

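Within the 4 libraries at 1 dpf, 13 named genes had 1 library far from the others by Dixon's criterion for 4 values. Chance alone meets this criterion in about 1 in 20 genes. The named genes tested in the fit numbered 298, so that 13 such genes are not read as an excess. Groups of 3 libraries, as at 2 dpf, were not examined in this way. Replicate 1 was the high library for *fbn2a* at 2.6 CPM, against 0.726 to 1.01 CPM in the others, for *mmp9* at 17.4 CPM against 5.05 to 5.59 CPM, for *grin1b* at 3.13 CPM against 1.09 to 1.35 CPM, and for *actc1a* at 1253.2 CPM. It was the low library for *otx5* at 1.07 CPM, against 1.31 to 1.36 CPM. Replicate 4 was high for *neurog1* at 47.4 CPM, against 30.7 to 32.1 CPM, and for *sox19a* at 518.1 CPM, and was low for the slow myosin *smyhc1* at 1203.5 CPM and for *psap* at 940.3 CPM. Replicate 5 was high for *snai1b* at 40.5 CPM, against 25.5 to 28 CPM, for *phospho1* at 57.8 CPM against 22.1 to 23.3 CPM, and for the hatching enzyme *he1.3* at 60.2 CPM against 16.3 to 19.9 CPM, and it was low for *rx3* at 3.9 CPM, against 4.45 to 4.5 CPM.

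The stage change differed between genotypes in *cart3*, by 2.53 on the log2 scale (FDR 0.00403 for the difference in edgeR's test over all genes). The log2FC in WT embryos was −1.03. Among the mutant libraries *cart3* averaged 6.71 CPM at 2 dpf and 2.38 CPM at 1 dpf, and every WT library at 2 dpf had between 0.963 and 1.27 CPM.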

How the results depend on the processing

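Over 21 alternatives, the number of genes higher at 2 dpf stayed within 1.5 times of 4161, and that of genes lower within 1.5 times of 2215, except with glmTreat, which tests against the threshold itself and called 2587 genes higher and 742 lower. With 1 WT library left out at a time, 3875 to 4347 genes were higher, of which 3794 to 4027 were shared with the full set of libraries, and 1934 to 2534 were lower, of which 1785 to 2053 were shared. The share of calls that were higher was 65.3% with TMM, 69.6% with upper quartile scaling, 74.4% with library totals, and 77.7% with glmTreat. The difference of the stage change between genotypes was called for 1 gene, for 3 genes with a term for the library number set, for 31 genes with DESeq2, and for 1 to 2 genes with 1 WT library left out. Of 228 named genes that were called, 55 lost the call in at least 1 alternative, 32 leaving glmTreat aside, and 25 when 1 library was left out. A further 16 gained one, and none reversed its direction. DESeq2 gave no adjusted p for 3 of the 228 genes. With library totals, counts of several lists moved by over 1.5 times. Higher were 10 melanin genes (6 with TMM), 4 DNA damage response genes (2), and 2 heat shock genes (1). Lower were 2 heart genes (4), 2 endothelial genes (4), 3 myogenic factors (5), 4 neural progenitor genes (8), 7 ion channel genes (11), and 3 neuropeptide genes (6). In the later set of libraries alone, 22 glycolytic genes (11) and 10 melanin genes were higher. The cause was not tested.

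Only replicate numbers 1 and 2 occur at both stages in WT. Deviations of same-numbered libraries from their stage means correlated across genes at 0.304 for number 1 and −0.218 for number 2. The labels state no pairing, so that these samples share only a number. Replicate 1 at 2 dpf had 0.31 with replicate 2 at 1 dpf. Replicate 2 at 2 dpf had 0.378 with replicate 4, and replicate 3 had 0.39 with replicate 5. These pairs, with different numbers, each lie within a library number set. The other pairs of the later set had 0.0188 and −0.0507, and all pairs across the sets −0.313 to −0.186. Deviations from a stage mean cancel out within the stage, so that positive values in some pairs force negative values in others. The negative values are thus no separate evidence of a difference between the sets. The cause of the positive values was not tested. With a replicate block on the libraries of numbers 1 and 2, 3807 genes were higher and 1734 lower, against 3578 and 1619 without the block.

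Depth, at 41473603 counts or more per WT library, limits mainly genes near 0, where folds are bounds. In the other genes the spread between libraries sets the error. Replicate 1 at 2 dpf stood nearest to 1 dpf, and without it 4347 genes were higher and 2534 lower. Each library is a single pool of embryos, and no label ties the pools of both stages to a clutch. Close copies of crystallin, globin, myosin, troponin, and hatching enzyme genes may share reads.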
